A study of Mus musculus with 12 samples.

Results

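The ventricle-like parts of mouse heart organoids (HOs) were compared with the ventricles of mouse embryonic hearts (E11.5H) over all genes of the deposited table. The members are the libraries labelled as the ventricle section of a heart organoid (3 libraries) or of an embryonic heart (3 libraries), 6 of the 12 libraries of the series. E11.5H ventricles were taken from hearts of C57BL/6 embryos at the stage E11.5. HO ventricle-like parts were taken from HOs on day 13 of culture and also carry the strain label C57BL/6. No allele was altered and no drug was compared in either group. Per the methods, embryoid bodies made from embryonic stem cells (ESCs) were grown on a laminin-entactin gel in medium with a serum replacement and the growth factor FGF4. BMP4, the GSK3 inhibitor BIO and the cytokine LIF were added in the later part of the culture, so all 3 reached the HO libraries and none of them the embryonic libraries. The study used ESC lines from C57BL/6 mice and from F1 hybrids of C57BL/6 and JF1, and the line behind each HO library is not given in the sources used here. Each library is a hand-dissected piece of tissue with several cell types. The HOs were 3 biological replicates, and how many hearts or HOs went into each library is not stated. For the E11.5H ventricles nothing in the sources used here says that the 3 libraries came from separate litters, so p-values measure the spread between these libraries, which may be technical in part.

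The ventricle of the embryonic heart is a working pump while it is still being built. Its cardiomyocytes contract by sliding actin on myosin in sarcomeres, keep dividing, and form an outer compact layer and inner ridges called trabeculae that are lined by endocardium and bathed in circulating blood. HOs beat too, but they have no circulation, lie in culture medium at the oxygen of an incubator, and stem cell cultures of this kind can also form cells of other germ layers. In a bulk library, fewer cells of a type and less RNA of a gene per cell cannot be told apart.

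Each library held 25943640 to 28294386 fragments assigned to genes in E11.5H ventricles and 27461570 to 28158300 in HO ventricle-like parts, so the groups had nearly the same depth and a count of 0 allowed up to 0.106 to 0.116 CPM (counts scaled to library size). More genes reached 10 counts in each HO library (15318 to 15877) than in each E11.5H library (14095 to 14341). Replicates differed by more than sampling noise, and none was counted as a repeat of another. E11.5H libraries resembled each other closely, with Pearson correlations of log2 expression across genes of 0.985 to 0.990, whereas HO libraries correlated at 0.833 to 0.921 and the groups with each other at 0.817 to 0.844. Some libraries stood apart. E11.5H library 3 held more blood than the other two, with erythroid genes at 0.838, 1.37 and 5.27% of fragments in E11.5H libraries 1, 2 and 3. HO library 3 held most of the endoderm signal, with hepatocyte and visceral endoderm genes at 0.114, 0.0410 and 1.45% of fragments in HO libraries 1, 2 and 3. HO library 2 held most of the neural signal, at 0.0564, 0.174 and 0.0205% of fragments. HO library 1 was richest in fibroblast and pericyte genes, at 3.01, 1.34 and 0.352% of fragments. E11.5H libraries also differed in genes of the sex chromosomes, with Y-linked genes expressed in library 3 but not in libraries 1 and 2, and in all 3 HO libraries. Levels are given as FPKM, fragment counts corrected for the length of the gene and the depth of the library, in the order of libraries 1, 2 and 3 of each group, and log2 fold changes as HO minus E11.5H ± their standard error.

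Of 15094 genes with enough counts to test, 2859 (18.9%) were called, by an adjusted p under 0.05 and a log2 fold change beyond 1 in either direction (edgeR, quasi-likelihood test). In HO ventricle-like parts 1749 genes (11.6%) rose and 1110 (7.35%) fell, and these shares are the background for every count below. Among the lists, falls were most frequent for the cell cycle, blood, the sarcomere and the ventricular chamber, and rises for interferon-induced genes, targets of LIF and interleukin 6, and intestinal and epithelial genes. These are shares of the members tested. Of 27 intestinal genes 12 were tested, and those at nearly 0 in E11.5H passed the filter only through HO libraries. Without any 1 E11.5H library 0 intestinal genes and 3 to 4 epithelial genes rose. The 3 libraries of a group did not overlap with the 3 of the other for 7725 genes (51.2%), among them 2841 of the 2859 genes called, and the median log2 fold change over all genes tested was 0.09. Without any 1 E11.5H library, when only 2 were left to set the spread, 1116 to 1212 genes were called, and without HO library 1, 2 or 3 there were 2114, 3316 or 3725. A count that moves by over 1.5 times in such a fit has the other value beside it in parentheses.

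Scaling decides how a fall is read. The fit used TMM scaling, which takes most genes as unchanged between libraries. When libraries were scaled instead to equal mean expression of the sarcomere genes, so that each was read per unit of heart muscle RNA, the median gene rose by 2.52 on the log2 scale, single genes by more or by less because the factor differed between libraries, and 93 genes stayed lower in HOs. All 93 were also called lower under TMM, and 36 of them are members of the lists described here. A list median below 0 that this cardiomyocyte scaling, or scaling on total counts only, lifts above 0 has that value beside it, and the single genes whose sign turns are given at the end. Falls whose sign did not turn could still lose the call. With cardiomyocyte scaling examples were Mki67 (log2 fold change -0.06), Rrm2 (-0.07), Igf2r (-0.02), Erbb4 (-0.02), Nkx2-5 (-0.19) and Cdkn1c (-0.22). With total counts only, the median gene rose by 0.14 and 69.3% of calls were rises, against 61.2% under TMM.

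**Figure D1:**
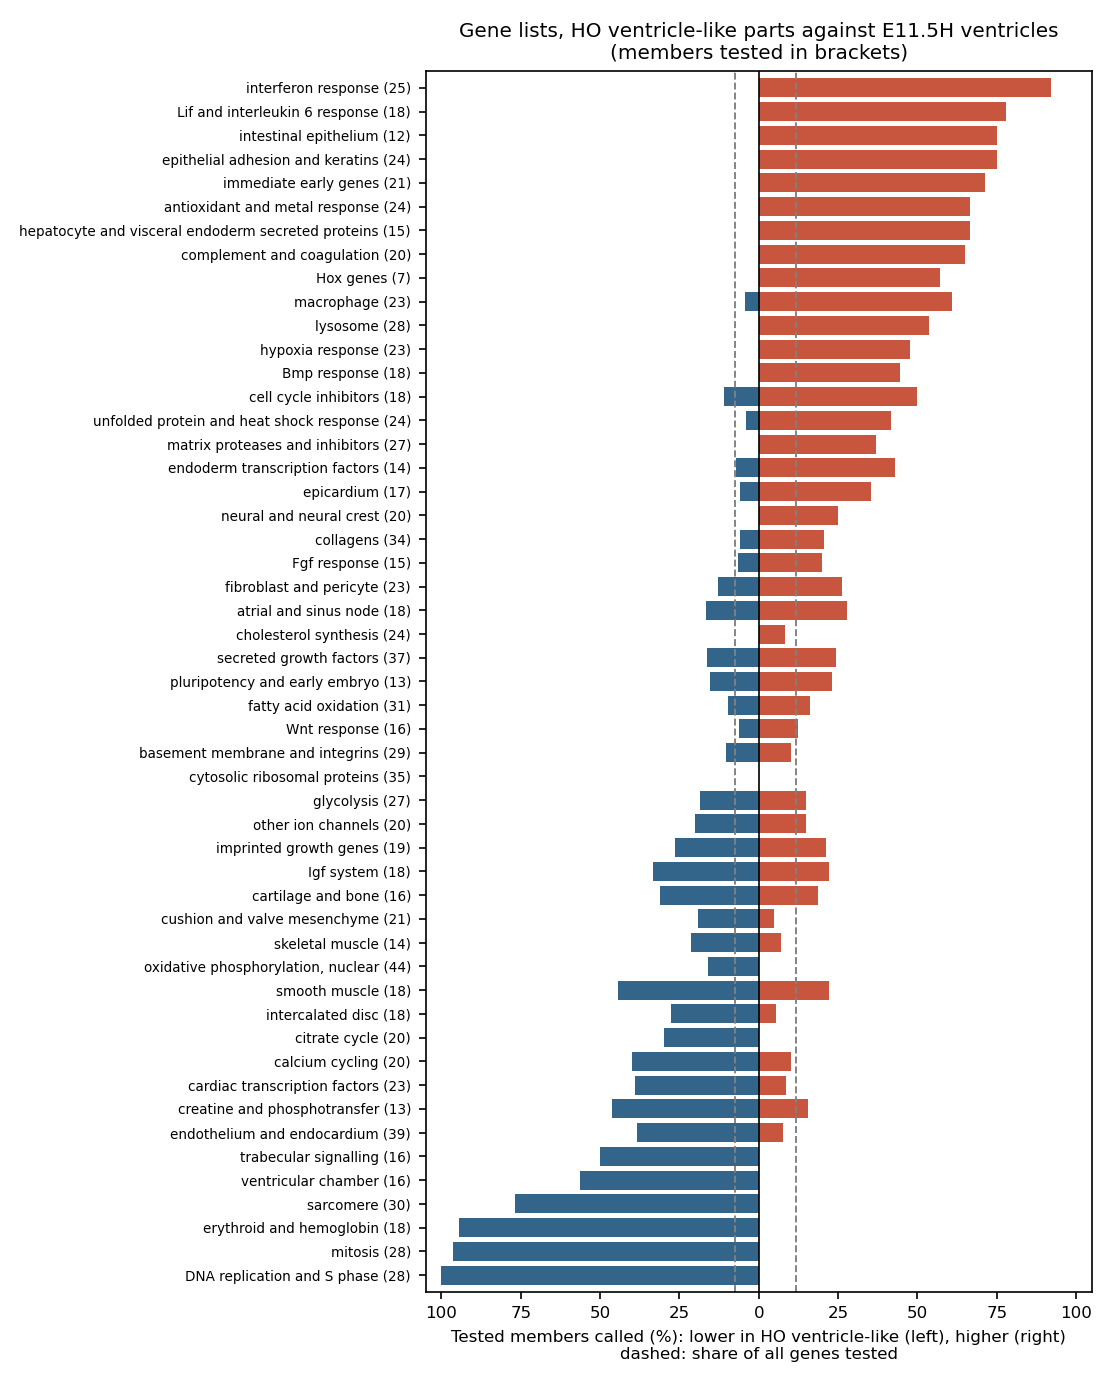
Share of tested members called higher or called lower in HO ventricle-like parts for each of the gene lists, in percent, with the share over all 15094 genes tested. Replication and mitosis genes stand at the end of the falls and interferon genes at the end of the rises. Directions are those of TMM scaling, and cardiomyocyte scaling raises the median gene by 2.52 (log2).

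The contractile apparatus was present in HO ventricle-like parts, at a lower level than in E11.5H ventricles. Of 30 sarcomere genes 23 fell and 0 (0 to 1 without any 1 E11.5H library) rose, with a median log2 fold change of -2.22, or 0.07 with cardiomyocyte scaling. Together these genes held 5.87, 6.18 and 5.86% of fragments in E11.5H and 0.955, 0.619 and 1.54% in HO libraries. The fall was uneven among the members. Actc1, the cardiac actin, was at 9122, 9092 and 8897 FPKM in E11.5H and 1142, 710.5 and 1480.5 FPKM in HO libraries (log2 fold change -3.11 ± 0.31, adjusted p = 0.00232). Tnnc1, the calcium sensor of the thin filament, was at 2150.0, 2071 and 2126 FPKM in E11.5H and 238, 229.5 and 402 FPKM in HO libraries (log2 fold change -2.96 ± 0.25, adjusted p = 0.00171). Both fell in every HO library to under every E11.5H library. The slow skeletal troponin I of fetal heart, Tnni1, was at 1659.7, 1651 and 1605 FPKM in E11.5H and 221, 173 and 428 FPKM in HO libraries (log2 fold change -2.67 ± 0.36, adjusted p = 0.00500), while the adult cardiac form, Tnni3, was at 715, 715 and 743 FPKM in E11.5H and 417, 218 and 615 FPKM in HO libraries and missed the threshold (log2 fold change -0.89 ± 0.36, adjusted p = 0.114). The heavy chains differed more. Myh7, the main ventricular myosin heavy chain before birth, was at 1185, 1455 and 1278 FPKM in E11.5H and 3.82, 5.46 and 37.9 FPKM in HO libraries (log2 fold change -6.47 ± 1.08, adjusted p = 0.00947). Myh6, which the atria use and which takes over in the mouse ventricle after birth, was at 445, 504 and 461 FPKM in E11.5H and 203, 117 and 417 FPKM in HO libraries and missed it (log2 fold change -1.03 ± 0.45, adjusted p = 0.133). On the FPKM scale, which corrects for length, Myh6 was above Myh7 in all 3 HO libraries and under it in all 3 E11.5H libraries.

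Light chains showed the same unevenness. Myl2, the ventricular regulatory light chain, was at 4954, 4954 and 5037 FPKM in E11.5H and 70.5, 45.8 and 254 FPKM in HO libraries (log2 fold change -5.42 ± 0.75, adjusted p = 0.00543). Myl7, its atrial counterpart, was at 4330.3, 4539.5 and 3786 FPKM in E11.5H and 1434, 463 and 1595 FPKM in HO libraries (log2 fold change -1.94 ± 0.46, adjusted p = 0.0258). In E11.5H the FPKM levels of this pair were close, and in each HO library Myl7 was far above Myl2. Myl3, the ventricular essential light chain, was at 3155, 3040.4 and 2986 FPKM in E11.5H and 99.4, 189.9 and 467 FPKM in HO libraries (log2 fold change -3.70 ± 0.58, adjusted p = 0.00789). Myl4, the atrial one, was at 1549, 1525 and 1433 FPKM in E11.5H and 178, 131 and 288 FPKM in HO libraries (log2 fold change -3.01 ± 0.31, adjusted p = 0.00256). Within this pair the falls were closer in size. Smpx, a small protein of the costamere, had the largest fall of the list after Myh7, at 283, 273 and 277 FPKM in E11.5H and 7.47, 3.82 and 8.82 FPKM in HO libraries (log2 fold change -5.46 ± 0.36, adjusted p = 0.00118). Mybpc3, cardiac myosin-binding protein C, was at 417, 481 and 423 FPKM in E11.5H and 38.2, 26.6 and 76.9 FPKM in HO libraries (log2 fold change -3.31 ± 0.42, adjusted p = 0.00420). These 4 genes stood under the embryonic range in each HO library. Tpm1, the main tropomyosin, stayed under the fold limit (log2 fold change -0.64 ± 0.16, adjusted p = 0.0308). With cardiomyocyte scaling Myh7 (log2 fold change -4.45), Myl2 (-3.31), Smpx (-3.12), Myl3 (-1.42) and Mybpc3 (-1.04) stayed lower. All 5 belong to the genes the scaling used. HO library 3 had the highest level of 26 of 30 sarcomere genes among HO libraries, and the coefficient of variation (CV) over HO libraries had a median of 0.527 for the list against 0.0568 in E11.5H. Myl7 lost the call without any 1 E11.5H library or HO library 1.

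The start of many muscle genes holds a CArG box, the site of serum response factor. It was searched on both strands in windows of 300 bases around gene starts (250 before and 50 after) and was found in 5 of 24 sarcomere genes with a window (20.8%) and in 1.81% of all 27025 genes with a window. The stretches of 150 bases before the start of Actc1 and Myl7 are shown because both genes were among the highest of the list in both groups and fell by different amounts. They lie, from RefSeq GRCm38.p6, with Actc1 at chr2:114052876-114053025 on the minus strand and Myl7 at chr11:5898783-5898932 on the minus strand, written 5′ to 3′ along the gene with the CArG box in capitals.
Actc1: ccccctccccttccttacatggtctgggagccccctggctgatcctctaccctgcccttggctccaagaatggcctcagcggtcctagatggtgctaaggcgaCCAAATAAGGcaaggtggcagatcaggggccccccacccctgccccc
Myl7: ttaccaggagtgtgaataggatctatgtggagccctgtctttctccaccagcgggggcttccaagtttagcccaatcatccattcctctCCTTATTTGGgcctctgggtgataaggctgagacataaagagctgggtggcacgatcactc
The match is a description of these letters and not a test of binding. Here and for the sites below all members of a list were searched, called or not. Such shares describe how a list was made up and not its change in HO libraries.

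Genes that mark the ventricle and its trabeculae were among the largest falls outside the blood. Of 16 ventricular chamber genes 9 fell and 0 (1 without HO library 3) rose (median log2 fold change -2.68). Among 16 genes of trabeculae and their signals 8 (5 without any 1 E11.5H library) fell and 0 rose (median -1.34, or 1.21 with cardiomyocyte scaling). Nppa, the atrial natriuretic peptide that marks embryonic trabeculae and atria, was at 2819, 2597 and 3058 FPKM in E11.5H and 4.01, 3.42 and 8.75 FPKM in HO libraries, 559-fold lower (log2 fold change -9.13 ± 0.50, adjusted p = 0.00108). Nppb, the related peptide of the ventricle, was at 478, 351 and 349 FPKM in E11.5H and 3.01, 9.29 and 2.96 FPKM in HO libraries (log2 fold change -6.37 ± 0.55, adjusted p = 0.00176). Bmp10, the signal of trabecular myocardium that keeps cardiomyocytes dividing, was at 13.3, 15.1 and 13.6 FPKM in E11.5H and 0, 0 and 0.0233 FPKM in HO libraries, with 1 fragment in the 3 HO libraries together (ratio 1946, 95% counting interval 349 to 76913, adjusted p = 0.00118). For all 3 genes every HO library lay far under every E11.5H library. The counting interval of Bmp10 is of summed fragments and leaves out the spread between libraries.

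Regulators and junction genes of the ventricle were lower too. Hey2, the repressor of the compact layer, was at 25, 29.7 and 23.0 FPKM in E11.5H and 0.808, 0.979 and 1.21 FPKM in HO libraries (log2 fold change -4.79 ± 0.22, adjusted p = 0.000781). Gja5, connexin 40 of the trabecular conduction path, was at 41.7, 39.6 and 44.5 FPKM in E11.5H and 1.19, 1.59 and 0.921 FPKM in HO libraries (log2 fold change -5.18 ± 0.23, adjusted p = 0.000781). Cited1, a coactivator of embryonic ventricles, was at 276, 266 and 288 FPKM in E11.5H and 1.69, 10.6 and 10.4 FPKM in HO libraries (log2 fold change -5.29 ± 0.71, adjusted p = 0.00497). The 3 HO libraries of each of these genes stood far under the E11.5H libraries. Hand1, of the left ventricle and outer curvature, was at 40.1, 42.0 and 36.2 FPKM in E11.5H and 9.70, 14.0 and 17.4 FPKM in HO libraries (log2 fold change -1.62 ± 0.22, adjusted p = 0.00516). Irx4, a ventricle-restricted homeobox gene, was at 32.4, 41.1 and 36.6 FPKM in E11.5H and 0.399, 1.67 and 8.83 FPKM in HO libraries and missed the threshold (log2 fold change -3.43 ± 1.04, adjusted p = 0.0515). HO library 3 kept part of its level and HO library 1 nearly none. The neuregulin receptors of trabeculation, Erbb4 (log2 fold change -2.39, adjusted p = 0.00496) and Erbb2 (log2 fold change -1.33, adjusted p = 0.00841), fell. Their ligand Nrg1, at 1.66, 1.17 and 0.871 FPKM in E11.5H and 0.264, 1.13 and 0.625 FPKM in HO libraries, overlapped between groups. With cardiomyocyte scaling Bmp10 (-8.51), Nppa (-6.83), Nppb (-3.62), Cited1 (-2.76), Gja5 (-2.57) and Hey2 (-2.33) stayed lower.

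**Figure D2:**
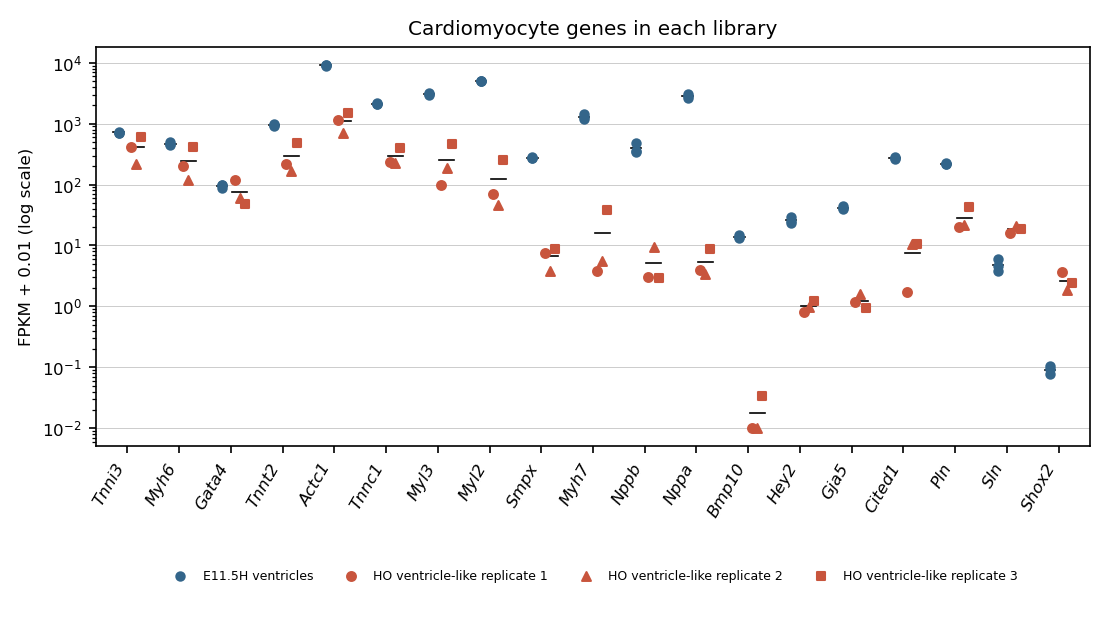
FPKM of cardiac genes in each library (log axis of FPKM + 0.01; points are libraries, black bars the means of the 3 libraries of a group). Nppa, Bmp10, Myh7 and Myl2 sit far lower in the 3 HO libraries than in the 3 E11.5H libraries, while Tnni3, Myh6 and Gata4 lie close together.

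Markers of the atrium and of the pacemaker region went both ways: of 18 genes 5 (2 to 3 without any 1 E11.5H library) rose and 3 (1 without any 1 E11.5H library) fell (median log2 fold change 0.83). Shox2, which keeps the node distinct from working atrium, was at 0.0669, 0.0855 and 0.0934 FPKM in E11.5H and 3.6, 1.88 and 2.43 FPKM in HO libraries (log2 fold change 4.90 ± 0.49, adjusted p = 0.00232). Tbx3, a repressor of the chamber program in the conduction system, was at 3.15, 4.72 and 3.66 FPKM in E11.5H and 10.5, 40.7 and 14.0 FPKM in HO libraries (log2 fold change 2.39 ± 0.53, adjusted p = 0.0214). Its relative Tbx2, of the atrioventricular canal, was at 5.08, 6.63 and 5.25 FPKM in E11.5H and 22.7, 30.3 and 36.5 FPKM in HO libraries (log2 fold change 2.30 ± 0.21, adjusted p = 0.00198). No HO library of these 3 genes overlapped with an E11.5H library. Nr2f2, the atrial identity factor that veins also express, was at 2.18, 2.13 and 2.57 FPKM in E11.5H and 6.65, 6.58 and 5.76 FPKM in HO libraries (log2 fold change 1.37 ± 0.17, adjusted p = 0.00431), and sarcolipin (Sln), an atrial calcium pump inhibitor, at 4.68, 3.75 and 5.99 FPKM in E11.5H and 16.2, 20.7 and 18.9 FPKM in HO libraries (log2 fold change 1.85 ± 0.34, adjusted p = 0.0123). Not all atrial markers followed. Tbx5, a factor of the atria and the left ventricle, was at 12.3, 14.1 and 13.1 FPKM in E11.5H and 14.4, 7.03 and 12.2 FPKM in HO libraries with overlapping groups (log2 fold change -0.32 ± 0.28, adjusted p = 0.419). Hcn4, the pacemaker channel, was at 4.27, 3.64 and 3.76 FPKM in E11.5H and 9.58, 4.41 and 5.54 FPKM in HO libraries (log2 fold change 0.66 ± 0.31, adjusted p = 0.158). Tbx18, of the sinus horn and epicardium, was at 15.9, 16.5 and 18.8 FPKM in E11.5H and 3.02, 0.621 and 0.534 FPKM in HO libraries (log2 fold change -3.70 ± 0.75, adjusted p = 0.0166). Tbx3 and Tbx18 lost the call without any 1 E11.5H library, and Sln without E11.5H library 1 or 2.

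Of 23 cardiac transcription factors tested 9 (4 to 5 without any 1 E11.5H library) fell and 2 (1 without any 1 E11.5H library) rose (median -0.96, or 1.55 with cardiomyocyte scaling). The early factors Gata4, Gata6, Mef2a and Hand2 missed the threshold. Gata4 was at 99.5, 99.1 and 89.4 FPKM in E11.5H and 119, 59.5 and 47.3 FPKM in HO libraries (log2 fold change -0.43 ± 0.35, adjusted p = 0.383). HO library 1 was above and the other two were under the embryonic range. Nkx2-5, the homeobox factor of the heart, was at 91.5, 93.4 and 82.7 FPKM in E11.5H and 11.504, 8.11 and 36.1 FPKM in HO libraries (log2 fold change -2.35 ± 0.57, adjusted p = 0.0273). Mef2c, a driver of muscle genes, was at 13.6, 13 and 11.6 FPKM in E11.5H and 5.06, 4.82 and 5.20 FPKM in HO libraries (log2 fold change -1.43 ± 0.11, adjusted p = 0.00136), and myocardin (Myocd), the partner of serum response factor, at 20.5, 27.6 and 20.9 FPKM in E11.5H and 4.14, 2.24 and 4.07 FPKM in HO libraries (log2 fold change -2.81 ± 0.29, adjusted p = 0.00258). Smyd1, a methyltransferase needed for sarcomere assembly, was at 50.7, 54.5 and 42.6 FPKM in E11.5H and 7.52, 3.92 and 12.5 FPKM in HO libraries (log2 fold change -2.71 ± 0.42, adjusted p = 0.00776). These 4 fell, and for Mef2c, Myocd and Smyd1 the call held without any 1 library. Nkx2-5 lost the call without any 1 E11.5H library or HO library 1.

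Genes of calcium cycling and of excitation shifted in composition. Of 20 calcium cycling genes 8 (5 without any 1 E11.5H library and 5 without HO library 1) fell and 2 (0 to 2 without any 1 E11.5H library and 4 without HO library 2) rose (median -0.70, or 1.68 with cardiomyocyte scaling), of 20 other ion channel genes 4 fell and 3 rose (median -0.26, or 1.98 with cardiomyocyte scaling), and of 18 intercalated disc genes 5 (3 without any 1 E11.5H library) fell and 1 (0 without any 1 E11.5H library, 0 without HO library 1 and 2 without HO library 2) rose (median -0.56, or 1.85 with cardiomyocyte scaling). Phospholamban (Pln), the brake of the calcium pump in the ventricle, was at 218, 226 and 218 FPKM in E11.5H and 20.2, 21.3 and 43.1 FPKM in HO libraries (log2 fold change -3.06 ± 0.33, adjusted p = 0.00273), while the pump itself, Atp2a2, was at 198, 233 and 214 FPKM in E11.5H and 206, 109 and 180.4 FPKM in HO libraries (log2 fold change -0.47 ± 0.26, adjusted p = 0.213). HO library 1 lay within the embryonic range of the pump and the other two under it. The exchanger Slc8a1, which removes calcium after each beat, was at 24.6, 28.1 and 25.1 FPKM in E11.5H and 4.68, 3.66 and 5.99 FPKM in HO libraries (log2 fold change -2.53 ± 0.21, adjusted p = 0.00153). The release channel Ryr2 was at 7.77, 9.95 and 8.13 FPKM in E11.5H and 2.36, 1.84 and 3.85 FPKM in HO libraries (log2 fold change -1.77 ± 0.29, adjusted p = 0.00914). The T-type calcium channel Cacna1g, of pacemaker cells, was at 0.205, 0.215 and 0.531 FPKM in E11.5H and 2.72, 2.04 and 1.56 FPKM in HO libraries (log2 fold change 2.63 ± 0.51, adjusted p = 0.0146). Under TMM scaling release, removal and the brake of the pump were thus lower, the pump itself was not called, and the T-type channel Cacna1g was higher. With cardiomyocyte scaling Ryr2 (log2 fold change 0.57), Slc8a1 (-0.12) and Pln (-0.71) were not called. Cacna1g lost the call without E11.5H library 1 or 2.

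Kcne1, the partner subunit of a repolarizing potassium channel, was at 12.5, 11.9 and 13.1 FPKM in E11.5H and 1.05, 0.699 and 2.20 FPKM in HO libraries (log2 fold change -3.34 ± 0.45, adjusted p = 0.00517). It fell to under the embryonic range in each HO library and stayed lower with cardiomyocyte scaling (-1.08). At the intercalated disc, Nrap, which anchors new myofibrils, was at 5.81, 7.13 and 7.98 FPKM in E11.5H and 0.451, 0.648 and 0.186 FPKM in HO libraries (log2 fold change -4.13 ± 0.48, adjusted p = 0.00350), and connexin 43 (Gja1) at 114, 116 and 121 FPKM in E11.5H and 106, 120.4 and 45.1 FPKM in HO libraries missed the threshold (log2 fold change -0.47 ± 0.34, adjusted p = 0.334). The member of the intercalated disc list that rose was lamin A (Lmna), a nuclear envelope protein of differentiated cells and not a junction protein. Lmna was at 30.7, 30.1 and 29.4 FPKM in E11.5H and 113, 126 and 44.5 FPKM in HO libraries (log2 fold change 1.55 ± 0.37, adjusted p = 0.0263). Lmna lost the call without any 1 E11.5H library or HO library 1.

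Mitochondrial genes were lower by small steps. Of 44 nuclear genes of oxidative phosphorylation 7 (4 to 5 without any 1 E11.5H library, 3 without HO library 2 and 17 without HO library 3) fell and 0 rose, with a median log2 fold change of -0.70, or 1.76 with cardiomyocyte scaling, and most of the others were lower by less than the limit of 1. Of 20 citrate cycle genes 6 fell and 0 rose (median -0.77, or 1.71 with cardiomyocyte scaling). Cycs, cytochrome c, was at 241, 223 and 230.4 FPKM in E11.5H and 116, 112 and 121 FPKM in HO libraries (log2 fold change -1.09 ± 0.10, adjusted p = 0.00191). Atp5g3, a subunit of the ATP synthase ring, was at 1501, 1471 and 1391 FPKM in E11.5H and 762, 635 and 740.4 FPKM in HO libraries (log2 fold change -1.12 ± 0.12, adjusted p = 0.00274). Both fell just past the fold limit. Idh2, the mitochondrial isocitrate dehydrogenase that feeds NADPH, was at 600.0, 617 and 669.5 FPKM in E11.5H and 177, 127 and 267 FPKM in HO libraries (log2 fold change -1.81 ± 0.28, adjusted p = 0.00774). Cs, citrate synthase, was at 226, 232 and 220.4 FPKM in E11.5H and 106, 103 and 126 FPKM in HO libraries (log2 fold change -1.11 ± 0.12, adjusted p = 0.00273). For these 4 genes no library of one group entered the range of the other. Ppargc1a, the coactivator of mitochondrial genes, was at 10.8, 13.8 and 13.5 FPKM in E11.5H and 2.75, 3.88 and 6.76 FPKM in HO libraries (log2 fold change -1.60 ± 0.34, adjusted p = 0.0187). Slc25a4, the heart and muscle form of the ADP/ATP carrier, was at 1490.4, 1451 and 1401 FPKM in E11.5H and 635, 610.2 and 728 FPKM in HO libraries (log2 fold change -1.23 ± 0.12, adjusted p = 0.00224). Ppargc1a lost the call without any 1 E11.5H library.

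Lipid genes were called in both directions, at shares near those of all genes. Of 31 fatty acid oxidation genes 5 (3 to 4 without any 1 E11.5H library) rose and 3 (1 without any 1 E11.5H library and 5 without HO library 3) fell (median 0.20). These are 16.1% and 9.68%, against 11.6% and 7.35% of all genes. Plin2, the coat of lipid droplets, was at 28, 30.2 and 29.2 FPKM in E11.5H and 331, 271 and 181 FPKM in HO libraries (log2 fold change 3.07 ± 0.24, adjusted p = 0.00144). Cpt1a, the liver form of the transporter that admits fatty acids to mitochondria, was at 6.65, 8.33 and 5.34 FPKM in E11.5H and 41.4, 31.6 and 25.8 FPKM in HO libraries (log2 fold change 2.20 ± 0.24, adjusted p = 0.00291). Its muscle form Cpt1b was at 69.1, 79.5 and 76.0 FPKM in E11.5H and 25.3, 13.4 and 38.2 FPKM in HO libraries (log2 fold change -1.64 ± 0.37, adjusted p = 0.0227). The liver and muscle forms of the transporter thus moved in opposite directions. Fabp3, the fatty acid carrier of heart, was at 422, 380.0 and 421 FPKM in E11.5H and 127, 81.4 and 177 FPKM in HO libraries (log2 fold change -1.75 ± 0.29, adjusted p = 0.00899). Pdk4, which closes the pyruvate dehydrogenase gate, was at 8.66, 7.44 and 7.67 FPKM in E11.5H and 67.0, 40.6 and 78.5 FPKM in HO libraries (log2 fold change 2.88 ± 0.27, adjusted p = 0.00208). In glycolysis 4 of 27 genes rose and 5 (2 without any 1 E11.5H library, 2 without HO library 1 and 3 without HO library 2) fell (median -0.18, or 2.31 with cardiomyocyte scaling). Main enzymes such as Gapdh (log2 fold change -0.06, adjusted p = 0.842), Pkm (log2 fold change -0.18, adjusted p = 0.245) and Eno1 (log2 fold change 0.01, adjusted p = 0.971) missed the threshold, while Eno2 rose (log2 fold change 3.12, adjusted p = 0.00370) and Hk1 fell (log2 fold change -1.80, adjusted p = 0.00118). Of 13 creatine and phosphotransfer genes 6 fell and 2 (1 without any 1 E11.5H library) rose (median -1.0, or 1.65 with cardiomyocyte scaling), and myoglobin (Mb), the oxygen store of muscle, was at 83.8, 85.5 and 92.9 FPKM in E11.5H and 11.51, 14.6 and 30.6 FPKM in HO libraries (log2 fold change -2.30 ± 0.38, adjusted p = 0.00899). Cpt1b lost the call without any 1 E11.5H library or HO library 1.

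Genes that low oxygen induces were higher in the HO libraries. Of 23 hypoxia response genes 11 rose and 0 fell, with a median log2 fold change of 0.86, and they held 0.332 to 0.359% of fragments in E11.5H and 0.524 to 0.677% in HO libraries. Egln3, the oxygen sensor that hypoxia itself induces, was at 4.22, 5.27 and 6.28 FPKM in E11.5H and 123, 111 and 126 FPKM in HO libraries (log2 fold change 4.41 ± 0.20, adjusted p = 0.000781). Car9, the carbonic anhydrase that exports acid, was at 0.624, 0.826 and 0.818 FPKM in E11.5H and 29.8, 19.2 and 12.3 FPKM in HO libraries (log2 fold change 4.67 ± 0.41, adjusted p = 0.00179). Ndrg1, a stress-induced gene, was at 1.99, 1.13 and 2.11 FPKM in E11.5H and 37.0, 55.4 and 104 FPKM in HO libraries (log2 fold change 5.14 ± 0.51, adjusted p = 0.00229). All 3 HO libraries lay above all 3 E11.5H libraries, with Ndrg1 highest in HO library 3 and Car9 in HO library 1. Vegfa, the ligand that calls blood vessels, was at 9.41, 12.6 and 11.9 FPKM in E11.5H and 74.4, 59.2 and 61.4 FPKM in HO libraries (log2 fold change 2.43 ± 0.18, adjusted p = 0.00136), and adrenomedullin (Adm) at 3.96, 4.36 and 6.75 FPKM in E11.5H and 63.7, 49.7 and 42.1 FPKM in HO libraries (log2 fold change 3.27 ± 0.30, adjusted p = 0.00208). The collagen hydroxylases P4ha1 (log2 fold change 2.20, adjusted p = 0.00227) and P4ha2 (log2 fold change 1.89, adjusted p = 0.00135) rose. So did Ero1l (log2 fold change 2.85, adjusted p = 0.00234), which helps to form disulfide bonds in secreted proteins. The members were not uniform. The glucose transporter Slc2a1 was at 359, 392 and 334 FPKM in E11.5H and 309.7, 305 and 392 FPKM in HO libraries (log2 fold change -0.20 ± 0.14, adjusted p = 0.318), and Pdk1 overlapped between groups (log2 fold change -0.36 ± 0.18, adjusted p = 0.177). Hif1a, the factor of the hypoxia response, which oxygen controls mainly at the protein level, was at 79.9, 83.6 and 72.8 FPKM in E11.5H and 78.5, 74.2 and 34.8 FPKM in HO libraries (log2 fold change -0.43 ± 0.30, adjusted p = 0.322).

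The core of the hypoxia response element, ACGTG, was found on either strand in 15 of 19 hypoxia response genes with a window (78.9%) and in 21.8% of all genes with a window. The stretches before Car9 and P4ha1 are printed because these genes rose and at most 13 bases lie between the core and the start. They lie with Car9 at chr4:43506876-43507025 on the plus strand and P4ha1 at chr10:59323146-59323295 on the plus strand (RefSeq GRCm38.p6), with the core in capitals.
Car9: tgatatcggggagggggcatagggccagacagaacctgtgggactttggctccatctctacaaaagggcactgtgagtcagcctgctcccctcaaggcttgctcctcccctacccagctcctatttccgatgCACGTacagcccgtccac
P4ha1: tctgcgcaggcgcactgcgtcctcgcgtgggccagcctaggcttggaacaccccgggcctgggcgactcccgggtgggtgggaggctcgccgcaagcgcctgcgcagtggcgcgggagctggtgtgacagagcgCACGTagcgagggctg
Between the core and the start lie 13 bases in Car9 and 11 in P4ha1. The share with the core covers all members, called or not, and so describes the list and not its rise. The factor itself was not measured. Of 24 cholesterol synthesis genes, another pathway that medium lipids can move, 2 (0 without any 1 E11.5H library and 5 without HO library 2) rose and 0 (1 without HO library 3) fell (median 0.39).

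The cell cycle was the function with the most complete fall. Of 28 genes of DNA replication and S phase 28 fell (median log2 fold change -1.68, or 0.81 with cardiomyocyte scaling). Of 28 mitosis genes 27 fell (median -1.81, or 0.63 with cardiomyocyte scaling), against 7.35% of all genes. Replication genes held 0.332 to 0.345% of fragments in E11.5H and 0.0916 to 0.123% in HO libraries, and mitosis genes 0.379 to 0.405% of fragments in E11.5H and 0.112 to 0.137% in HO libraries. Mcm5, a subunit of the helicase that opens replication origins, was at 51.6, 57.2 and 50.6 FPKM in E11.5H and 12.8, 10.2 and 6.93 FPKM in HO libraries (log2 fold change -2.50 ± 0.24, adjusted p = 0.00216). Mcm6 of the same complex was at 55.6, 53.5 and 52.9 FPKM in E11.5H and 19.8, 15.6 and 17.6 FPKM in HO libraries (log2 fold change -1.7 ± 0.13, adjusted p = 0.00136). Rrm2, which limits the supply of deoxynucleotides, was at 154, 142 and 154 FPKM in E11.5H and 35.2, 21.7 and 24.7 FPKM in HO libraries (log2 fold change -2.55 ± 0.21, adjusted p = 0.00164). All 3 were lower in each HO library. Mki67, the standard marker of dividing cells, was at 11.9, 13.1 and 18.6 FPKM in E11.5H and 2.49, 2.40 and 3.26 FPKM in HO libraries (log2 fold change -2.52 ± 0.24, adjusted p = 0.00216). In mitosis, Cdk1, the kinase that starts it, was at 53.1, 48.1 and 53.7 FPKM in E11.5H and 23.9, 18.4 and 15.2 FPKM in HO libraries (log2 fold change -1.52 ± 0.19, adjusted p = 0.00406). Ube2c, which helps to end it, was at 269.7, 269 and 272 FPKM in E11.5H and 63.8, 58.7 and 70.9 FPKM in HO libraries (log2 fold change -2.16 ± 0.11, adjusted p = 0.000890). None of these had an HO library inside the range of E11.5H. The mitosis gene that missed the threshold was Bub3, of the spindle checkpoint, at 78.2, 72.0 and 77.6 FPKM in E11.5H and 63.7, 68.6 and 56.8 FPKM in HO libraries (log2 fold change -0.36 ± 0.11, adjusted p = 0.0453). The counts moved little without any 1 library: 24 to 28 replication genes and 25 to 27 mitosis genes fell.

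Promoters of these genes share known sites. An E2F site, TTTCCCGC or TTTGGCGC on either strand, was found in 8 of 22 replication genes with a window (36.4%) and in 1.8% of all genes with a window. The cell cycle genes homology region, TTTGAA on either strand, was found in 18 of 24 mitosis genes (75%) and in 20.2% of all genes with a window. The stretches of Mcm5 and Mcm6 are shown for the first site and those of Cdk1 and Ube2c for the second, because these genes fell in every HO library. They lie with Mcm5 at chr8:75109359-75109508 on the plus strand, Mcm6 at chr1:128359706-128359855 on the minus strand, Cdk1 at chr10:69352913-69353062 on the minus strand and Ube2c at chr2:164769779-164769928 on the plus strand (RefSeq GRCm38.p6), with the sites in capitals.
Mcm5: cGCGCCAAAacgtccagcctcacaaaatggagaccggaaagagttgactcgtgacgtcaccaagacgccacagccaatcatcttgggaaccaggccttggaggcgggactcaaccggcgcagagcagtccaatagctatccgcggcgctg
Mcm6: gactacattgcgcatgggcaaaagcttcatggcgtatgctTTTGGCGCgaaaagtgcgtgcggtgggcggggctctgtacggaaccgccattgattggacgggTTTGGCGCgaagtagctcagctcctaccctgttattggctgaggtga
Cdk1: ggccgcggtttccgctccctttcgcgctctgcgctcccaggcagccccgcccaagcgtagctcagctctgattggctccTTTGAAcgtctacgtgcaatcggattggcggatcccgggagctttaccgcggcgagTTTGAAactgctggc
Ube2c: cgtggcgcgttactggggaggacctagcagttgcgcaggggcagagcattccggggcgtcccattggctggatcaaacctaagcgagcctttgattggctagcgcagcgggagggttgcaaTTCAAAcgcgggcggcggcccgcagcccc
The letters of the sites are shown as they read on this strand.

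Inhibitors of the cell cycle moved the other way in part: 9 (5 to 6 without any 1 E11.5H library) of 18 rose and 2 fell (median 1.21). Cdkn1a (p21), a target of p53, was at 13.2, 16.9 and 17.4 FPKM in E11.5H and 298, 241 and 537 FPKM in HO libraries (log2 fold change 4.41 ± 0.37, adjusted p = 0.00161). Cdkn2b (p15), which blocks the kinases of early G1, was at 1.16, 1.91 and 0.826 FPKM in E11.5H and 37.0, 39.2 and 45.3 FPKM in HO libraries (log2 fold change 4.87 ± 0.34, adjusted p = 0.00134). In both every HO library was far above every E11.5H library. Cdkn2a, a marker of senescent cells, was at 0 FPKM in all 3 E11.5H libraries and 0.753, 0.269 and 1.76 FPKM in HO libraries, at least 10.3-fold higher (adjusted p = 0.0277; the bound sets 3 counts in each library of the group at 0). Such a bound, here and below, is of the mean of the other group and not of each of its libraries. The stress genes Gadd45a (log2 fold change 3.01, adjusted p = 0.00871), Gadd45b (log2 fold change 2.12, adjusted p = 0.00115) and Gadd45g (log2 fold change 1.43, adjusted p = 0.00354) rose as well. An exception was Cdkn1c (p57), the imprinted inhibitor that embryonic heart expresses strongly, at 956, 929 and 775 FPKM in E11.5H and 84.4, 196 and 106 FPKM in HO libraries (log2 fold change -2.88 ± 0.32, adjusted p = 0.00317). Cyclin D1 (Ccnd1) fell to 3.96, 8.07 and 7.99 FPKM in HO libraries from 28.8, 29.8 and 23.9 FPKM (log2 fold change -2.14 ± 0.28, adjusted p = 0.00475). Cdkn2a lost the call without any 1 E11.5H library or HO library 1, and Gadd45a without E11.5H library 2.

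**Figure D3:**
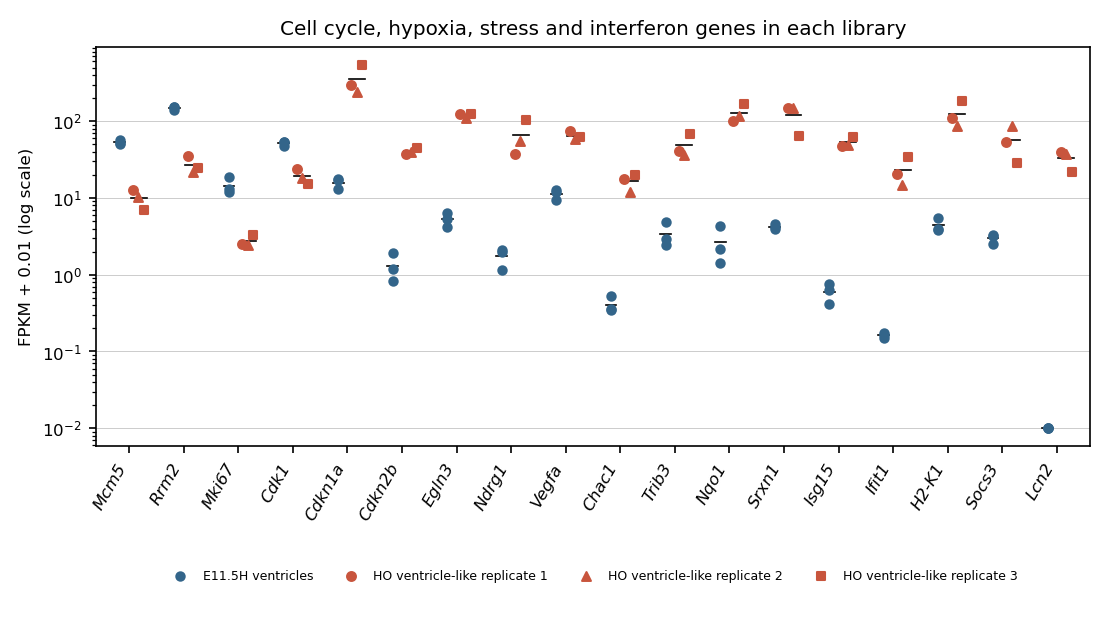
FPKM of cell cycle, hypoxia, stress and interferon genes in each library (log axis of FPKM + 0.01; points are libraries, black bars group means). The 3 HO libraries lie under the 3 E11.5H libraries for Mki67 and Cdk1 and above them for Egln3, Cdkn1a and Isg15.

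Growth genes with parental imprinting split. Of 19 tested 4 rose and 5 fell (median 0.26). Grb10, a brake on insulin and growth factor receptors, was at 242, 266 and 225 FPKM in E11.5H and 10.2, 12.4 and 13 FPKM in HO libraries (log2 fold change -4.46 ± 0.14, adjusted p = 0.000315). Mest was at 1380.3, 1376 and 1334 FPKM in E11.5H and 38.8, 135 and 28.9 FPKM in HO libraries (log2 fold change -4.44 ± 0.64, adjusted p = 0.00633). Igf2r, which clears IGF2, was at 113, 127 and 108 FPKM in E11.5H and 21.4, 18.3 and 28.5 FPKM in HO libraries (log2 fold change -2.44 ± 0.20, adjusted p = 0.00150). For these 3 genes every HO library was under the embryonic range. Its ligand Igf2 was at 370.2, 376 and 350.2 FPKM in E11.5H and 177, 177 and 226 FPKM in HO libraries (log2 fold change -1.01 ± 0.14, adjusted p = 0.00532). H19, the RNA next to Igf2 that is expressed from the other allele, was at 439, 435 and 402 FPKM in E11.5H and 579.7, 482 and 628 FPKM in HO libraries and missed the threshold (log2 fold change 0.31 ± 0.14, adjusted p = 0.134). Dlk1, a membrane regulator of growth, was at 13.8, 12 and 9.36 FPKM in E11.5H and 186, 202 and 69.4 FPKM in HO libraries (log2 fold change 3.61 ± 0.44, adjusted p = 0.00366). Meg3, the noncoding RNA of the same locus, was at 1.38, 1.62 and 1.08 FPKM in E11.5H and 4.31, 10.2 and 7.55 FPKM in HO libraries (log2 fold change 2.33 ± 0.33, adjusted p = 0.00565), so both genes of that locus rose. Grb10 stayed lower with cardiomyocyte scaling (-1.95). In the Igf system as a whole 4 (2 without any 1 E11.5H library) of 18 genes rose and 6 (3 without HO library 1) fell (median 0.18). Igfbp7, a secreted binding protein, was at 19.7, 18.6 and 14.1 FPKM in E11.5H and 295, 439.8 and 172 FPKM in HO libraries (log2 fold change 4.02 ± 0.37, adjusted p = 0.00198). Irs1, the relay of the IGF receptor, was at 8.11, 8.99 and 6.61 FPKM in E11.5H and 2, 2.12 and 2.86 FPKM in HO libraries (log2 fold change -1.85 ± 0.19, adjusted p = 0.00256). Igf2 lost the call without HO library 1 or 2.

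Blood genes had the largest falls. Of 18 erythroid genes tested (of 21 in the table) 17 fell and 0 rose, with a median log2 fold change of -9.92, or -9.59 with genes at 0 in a group held at their bound. Their summed level was 0.838, 1.37 and 5.27% of fragments in E11.5H libraries and 0.00228, 0.00156 and 0.00173% in HO libraries. Hbb-y, the embryonic epsilon globin of yolk sac erythrocytes, was at 5699.9, 9191 and 36779 FPKM in E11.5H and 2.57, 0.396 and 0.448 FPKM in HO libraries (log2 fold change -13.99 ± 1.51, adjusted p = 0.00278). Slc4a1, the anion exchanger of red cells, was at 13, 20.6 and 93.1 FPKM in E11.5H and 0 FPKM in all 3 HO libraries, at least 2285-fold lower (adjusted p = 0.0110). Hemgn and Gfi1b, both nuclear proteins of erythroid cells, were at 0 in all 3 HO libraries. The level within E11.5H varied, since library 3 held more than the other two for each of these genes, yet HO libraries lay under all 3. Without E11.5H library 3, 15 erythroid genes fell and the median log2 fold change was -8.78. Leaving the hemoglobin genes out of the scaling gave 2861 calls over all genes, against 2859.

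Endothelial and endocardial genes were lower too, with unequal HO libraries. Of 39 genes 15 (4 to 5 without any 1 E11.5H library and 27 without HO library 2) fell and 3 (1 to 2 without any 1 E11.5H library) rose (median -2.30, or 0.65 with cardiomyocyte scaling), and the list held 0.207 to 0.224% of fragments in E11.5H and 0.0353 to 0.0887% in HO libraries. HO library 2 had the highest level of 14 of the 22 members with a mean of at least 5 CPM in HO libraries. Plvap, of fenestrated endothelium and endocardium, was at 109.9, 106 and 104 FPKM in E11.5H and 0.561, 7.38 and 0.107 FPKM in HO libraries (log2 fold change -5.43 ± 1.39, adjusted p = 0.0324). Pecam1, the general endothelial adhesion gene, was at 25.2, 24.1 and 20.4 FPKM in E11.5H and 0.449, 5.94 and 0.342 FPKM in HO libraries and missed the threshold (log2 fold change -3.49 ± 1.13, adjusted p = 0.0619), as did Cdh5, VE-cadherin, at 11.1, 10.9 and 11.53 FPKM in E11.5H and 0.0690, 4.24 and 0.402 FPKM in HO libraries (log2 fold change -2.96 ± 1.27, adjusted p = 0.128). Both were near 0 in HO libraries 1 and 3 and kept part of their level in HO library 2. Nos3, the nitric oxide synthase of endothelium, was at 19.3, 17.8 and 21.0 FPKM in E11.5H and 0.595, 2.73 and 0.708 FPKM in HO libraries (log2 fold change -3.96 ± 0.64, adjusted p = 0.00842). Flt4, the receptor for VEGFC, was at 2.67, 3.80 and 3.10 FPKM in E11.5H and 0.298, 0.210 and 0.0792 FPKM in HO libraries (log2 fold change -4.11 ± 0.54, adjusted p = 0.00469). Kdr, the VEGFA receptor, was at 12.1, 14.3 and 10.2 FPKM in E11.5H and 17.5, 2.67 and 0.370 FPKM in HO libraries, with HO library 1 above and HO library 3 under the embryonic range (log2 fold change -0.90 ± 1.16, adjusted p = 0.583). Apelin (Apln), a peptide that low oxygen induces, rose to 10.5, 7 and 1.86 FPKM from 0.763, 0.620 and 0.892 FPKM (log2 fold change 3.0 ± 0.65, adjusted p = 0.0200). Plvap and Apln lost the call without any 1 E11.5H library or HO library 1. Plvap had a log2 fold change between -8.38 and -4.91 when 1 library was left out (HO library 2 and HO library 3).

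Interferon-induced genes had the highest share of rises of the lists. Of 25 genes 23 rose and 0 fell, with a median log2 fold change of 4.57, or 4.52 with genes at 0 in a group held at their bound, against rises of 11.6% over all genes. They held 0.0186 to 0.0219% of fragments in E11.5H and 0.180 to 0.222% in HO libraries. Of the 22 members with a mean of at least 5 CPM in HO libraries 18 were highest in HO library 3. Isg15, a ubiquitin-like protein, was at 0.743, 0.615 and 0.403 FPKM in E11.5H and 47.7, 49.2 and 61.6 FPKM in HO libraries (log2 fold change 6.39 ± 0.30, adjusted p = 0.000781). Ifit1, which binds foreign RNA ends, was at 0.166, 0.153 and 0.141 FPKM in E11.5H and 20.2, 14.6 and 34.6 FPKM in HO libraries (log2 fold change 7.14 ± 0.44, adjusted p = 0.00115). Irf7, the factor that amplifies the response, was at 0.520, 0.0667 and 0.328 FPKM in E11.5H and 16, 15.2 and 25.2 FPKM in HO libraries (log2 fold change 5.85 ± 0.72, adjusted p = 0.00395). All 3 were under 1 FPKM in every E11.5H library. Every HO library was above every E11.5H library for these genes. The list also holds genes of antigen presentation, which rose. B2m, the light chain of class I molecules, was at 96.3, 86.3 and 84.6 FPKM in E11.5H and 376, 446 and 343 FPKM in HO libraries (log2 fold change 2.03 ± 0.12, adjusted p = 0.00115). H2-K1, a class I heavy chain, was at 3.97, 3.84 and 5.40 FPKM in E11.5H and 109, 85.6 and 183 FPKM in HO libraries (log2 fold change 4.74 ± 0.37, adjusted p = 0.00142). Tap1, the peptide transporter, was at 0.233, 0.378 and 0.712 FPKM in E11.5H and 9.68, 8.51 and 14.4 FPKM in HO libraries (log2 fold change 4.52 ± 0.52, adjusted p = 0.00329). The genes that missed the threshold were Ifit2 (log2 fold change 1.13, adjusted p = 0.132) and Mx2 (log2 fold change 3.36, adjusted p = 0.120).

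The interferon-stimulated response element, searched as GAAA, any 2 bases and GAAA on either strand, was found in 12 of 21 genes of the list with a window (57.1%) and in 3.99% of all genes with a window. The stretches before Isg15 and Ifit1 are printed because these genes rose in every HO library and carry 3 and 2 copies. They lie with Isg15 at chr4:156200819-156200968 on the minus strand and Ifit1 at chr19:34640739-34640888 on the plus strand (RefSeq GRCm38.p6), with the elements in capitals, which run together where copies overlap.
Isg15: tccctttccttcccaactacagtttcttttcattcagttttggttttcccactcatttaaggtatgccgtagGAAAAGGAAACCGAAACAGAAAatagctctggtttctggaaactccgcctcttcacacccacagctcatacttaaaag
Ifit1: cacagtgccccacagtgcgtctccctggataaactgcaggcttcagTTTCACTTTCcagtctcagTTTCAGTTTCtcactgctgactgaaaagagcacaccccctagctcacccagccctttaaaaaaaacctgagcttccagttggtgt

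Targets of LIF and interleukin 6, which signal through STAT3, also rose. Of 18 genes 14 (8 without any 1 E11.5H library) rose and 0 fell (median 3.89). LIF was in the medium of all 3 HO libraries and of no E11.5H library. Its part in these values cannot be told apart from that of culture as a whole. Socs3, the feedback inhibitor, was at 3.32, 3.22 and 2.49 FPKM in E11.5H and 53.3, 87.2 and 28.3 FPKM in HO libraries (log2 fold change 4.13 ± 0.43, adjusted p = 0.00262). Stat3 itself was at 18.3, 21.3 and 18.6 FPKM in E11.5H and 92.4, 92.9 and 51.1 FPKM in HO libraries (log2 fold change 1.93 ± 0.25, adjusted p = 0.00437). Cebpb, a factor of the acute phase, was at 13.5, 13.4 and 15.9 FPKM in E11.5H and 286, 319.9 and 107 FPKM in HO libraries (log2 fold change 3.96 ± 0.44, adjusted p = 0.00298). All 3 rose, least in HO library 3. Osmr, a receptor of the same cytokine family, was at 0.316, 0.327 and 0.175 FPKM in E11.5H and 23.5, 14.5 and 1.41 FPKM in HO libraries (log2 fold change 5.50 ± 1.06, adjusted p = 0.0143). The acute phase genes Saa3 and Lcn2 had no fragment in any E11.5H library. Saa3, serum amyloid A, was at 251, 83.4 and 9.47 FPKM in HO libraries, at least 598-fold higher (adjusted p = 0.0237), and Lcn2, which binds bacterial iron carriers, at 39.1, 37.9 and 22.1 FPKM, at least 274-fold higher (adjusted p = 0.00199). The receptor subunits of the list, Lifr (log2 fold change 1.05, adjusted p = 0.114) and Il6st (log2 fold change 0.64, adjusted p = 0.0933), missed the threshold. Osmr and Saa3 lost the call without any 1 E11.5H library.

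Complement and coagulation genes rose, 13 (3 to 5 without any 1 E11.5H library) of 20 tested, and 0 fell (median 2.86). C3, the central complement protein, was at 0.188, 0.133 and 0.540 FPKM in E11.5H and 49.0, 8.77 and 9.25 FPKM in HO libraries (log2 fold change 6.19 ± 1.06, adjusted p = 0.0103). Tissue factor (F3), the start of clotting, was at 3.62, 4.71 and 2.42 FPKM in E11.5H and 39.4, 24.8 and 51.8 FPKM in HO libraries (log2 fold change 3.35 ± 0.37, adjusted p = 0.00309). Of 23 macrophage genes tested 14 (6 to 7 without any 1 E11.5H library, 7 without HO library 1 and 8 without HO library 2) rose and 1 (0 without any 1 E11.5H library and 0 without HO library 1) fell (median 3.32). Their summed level was 0.0101 to 0.0131% of fragments in E11.5H and 0.0281 to 0.148% in HO libraries. Csf1r, the growth factor receptor of macrophages, was at 1.88, 1.58 and 1.49 FPKM in E11.5H and 12.8, 14.0 and 10.5 FPKM in HO libraries (log2 fold change 2.82 ± 0.18, adjusted p = 0.00118). Cd68, a lysosomal glycoprotein, was at 0.825, 0.348 and 0.733 FPKM in E11.5H and 89.7, 86.4 and 40.6 FPKM in HO libraries (log2 fold change 6.73 ± 0.51, adjusted p = 0.00136). Trem2, a lipid receptor, was at 0.190, 0.243 and 0.414 FPKM in E11.5H and 44.1, 33.3 and 10.5 FPKM in HO libraries (log2 fold change 6.59 ± 0.72, adjusted p = 0.00290). The HO libraries were unequal, with library 3 the lowest for each of these genes. Adgre1 (F4/80) was at 0.577, 0.487 and 0.918 FPKM in E11.5H and 8.80, 16.7 and 0.684 FPKM in HO libraries and was called although the groups overlapped (log2 fold change 3.61 ± 1.06, adjusted p = 0.0476). The pan-leukocyte gene Ptprc was at 0.0826, 0 and 0.0538 FPKM in E11.5H and 0.744, 0.886 and 0.185 FPKM in HO libraries (log2 fold change 3.62 ± 1.31, adjusted p = 0.0845), and the macrophage scavenger receptor Cd163 was at 0 in all 3 E11.5H libraries and at 0, 0.00681 and 0 FPKM in HO libraries. The part of macrophages in the interferon result was not tested. C3 lost the call without E11.5H library 1 or 2, and Adgre1 without any 1 E11.5H library or HO library 1 or 2.

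Of 24 antioxidant and metal response genes 16 (7 to 11 without any 1 E11.5H library) rose and 0 fell (median 2.39). Nqo1, the quinone reductase that NRF2 induces, was at 1.43, 2.14 and 4.34 FPKM in E11.5H and 99.4, 115 and 167 FPKM in HO libraries (log2 fold change 5.49 ± 0.52, adjusted p = 0.00208). Hmox1, which breaks down heme, was at 12.2, 12 and 8.33 FPKM in E11.5H and 259, 363 and 80.9 FPKM in HO libraries (log2 fold change 4.34 ± 0.57, adjusted p = 0.00475). Srxn1, which repairs peroxiredoxins, was at 3.89, 4.12 and 4.56 FPKM in E11.5H and 148, 148 and 64.5 FPKM in HO libraries (log2 fold change 4.75 ± 0.38, adjusted p = 0.00148). HO library 3 was the lowest of the HO libraries for Hmox1 and Srxn1 and the highest for Nqo1. Gclc, the first enzyme of glutathione synthesis, was at 8.91, 8.26 and 8.49 FPKM in E11.5H and 34.9, 33.5 and 39.9 FPKM in HO libraries (log2 fold change 1.99 ± 0.12, adjusted p = 0.00115). In each of these the groups stood clearly apart. Iron storage rose with them, Ftl1 (ferritin light chain) at 2409.8, 2429 and 2729 FPKM in E11.5H and 7302, 7623 and 7230.3 FPKM in HO libraries (log2 fold change 1.45 ± 0.14, adjusted p = 0.00223). General scavengers did not all follow. Gpx1, a glutathione peroxidase, was at 557, 587 and 1057 FPKM in E11.5H and 532, 565 and 715 FPKM in HO libraries (log2 fold change -0.39 ± 0.30, adjusted p = 0.361) and Prdx1 missed the threshold (log2 fold change 0.54, adjusted p = 0.0865).

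Among 24 genes of the unfolded protein and heat shock response 10 rose and 1 (0 to 1 without any 1 E11.5H library, 0 without HO library 1 and 2 without HO library 3) fell (median 0.75). Among those that rose were genes of the branch through ATF4, which answers amino acid shortage and other stresses. Atf4 was at 39.3, 39.8 and 49.7 FPKM in E11.5H and 149.7, 138 and 157 FPKM in HO libraries (log2 fold change 1.69 ± 0.15, adjusted p = 0.00176). Trib3, its target, was at 2.43, 2.95 and 4.85 FPKM in E11.5H and 40.7, 36.4 and 67.8 FPKM in HO libraries (log2 fold change 3.72 ± 0.40, adjusted p = 0.00274). Chac1, which degrades glutathione, was at 0.516, 0.335 and 0.345 FPKM in E11.5H and 17.5, 11.8 and 19.8 FPKM in HO libraries (log2 fold change 5.26 ± 0.36, adjusted p = 0.00118). Trib3 and Chac1 were highest in HO library 3. Asns, asparagine synthetase, was at 24.2, 22.5 and 28.1 FPKM in E11.5H and 98.9, 94.2 and 95.1 FPKM in HO libraries (log2 fold change 1.85 ± 0.13, adjusted p = 0.00134). Each had 3 HO libraries above all E11.5H libraries. Chaperones of the endoplasmic reticulum were not called higher with them. Hspa5, the main one, was at 381, 376 and 359.7 FPKM in E11.5H and 481, 429 and 479.8 FPKM in HO libraries (log2 fold change 0.22 ± 0.11, adjusted p = 0.169). Hsp90b1 (log2 fold change -0.31, adjusted p = 0.0891) and Calr (log2 fold change -0.23, adjusted p = 0.0887) missed the threshold, and Sdf2l1 (log2 fold change -1.05, adjusted p = 0.00557) fell. The inducible heat shock genes Hspa1a (log2 fold change 2.68, adjusted p = 0.00136) and Hspa1b (log2 fold change 3.35, adjusted p = 0.00221) rose. Gdf15, the cytokine that these stresses induce, was at 0.455, 0.368 and 0.457 FPKM in E11.5H and 21.7, 17.1 and 34.8 FPKM in HO libraries (log2 fold change 5.75 ± 0.37, adjusted p = 0.00118). Sdf2l1 lost the call without E11.5H library 2 or HO library 1.

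Immediate early genes, which dissection as well as growth signals can induce, rose in 15 (8 to 9 without any 1 E11.5H library) of 21 cases tested, and 0 (1 without HO library 2) fell (median 1.86). Fos was at 4.39, 4.04 and 3.29 FPKM in E11.5H and 50.1, 45.1 and 29.0 FPKM in HO libraries (log2 fold change 3.31 ± 0.25, adjusted p = 0.00136). Egr1 was at 8.06, 9.05 and 7.65 FPKM in E11.5H and 99.7, 95.5 and 65.2 FPKM in HO libraries (log2 fold change 3.30 ± 0.20, adjusted p = 0.00115). Ier3 was at 17.7, 14.2 and 23.1 FPKM in E11.5H and 251, 275 and 135 FPKM in HO libraries (log2 fold change 3.48 ± 0.35, adjusted p = 0.00232). Both groups were dissected before freezing, and times of handling are not given in the sources used here, so the part of handling was not tested. Of 28 lysosome genes 15 rose and 0 fell (median 1.10). Ctsd, the main aspartic protease, was at 217, 227 and 219 FPKM in E11.5H and 810.1, 654 and 689.6 FPKM in HO libraries (log2 fold change 1.61 ± 0.13, adjusted p = 0.00154). Lamp2 of the membrane was at 19.9, 22.8 and 19.1 FPKM in E11.5H and 61.1, 51.2 and 54.4 FPKM in HO libraries (log2 fold change 1.34 ± 0.12, adjusted p = 0.00198). Gpnmb, which rises in lipid-loaded macrophages and other cells, was at 0.164, 0 and 0.116 FPKM in E11.5H and 87.0, 119.8 and 22.7 FPKM in HO libraries (log2 fold change 9.57 ± 1.14, adjusted p = 0.00358). Lamp1 missed the threshold (log2 fold change 0.19, adjusted p = 0.215). The median CV over HO libraries was 0.197 for the 28 lysosome genes, called or not, and 0.723 for macrophage genes. Gpnmb was uneven and lowest in HO library 3. The part of macrophages in the lysosomal rises was not tested.

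Of 23 fibroblast and pericyte genes tested 6 (1 to 2 without any 1 E11.5H library and 10 without HO library 3) rose and 3 (0 to 1 without any 1 E11.5H library) fell (median 0.35), with 3.01, 1.34 and 0.352% of fragments in HO libraries 1, 2 and 3 and 0.427, 0.410 and 0.374% in E11.5H. Of 34 collagens 7 (1 without any 1 E11.5H library, 4 without HO library 1 and 15 without HO library 3) rose and 2 (1 without any 1 E11.5H library and 4 without HO library 2) fell (median 1.51). Col1a1, the main chain of fibrous collagen, was at 47.2, 45.3 and 44.8 FPKM in E11.5H and 956, 351 and 87.9 FPKM in HO libraries (log2 fold change 3.26 ± 0.82, adjusted p = 0.0307). Col1a2 was at 75.5, 71.2 and 55.4 FPKM in E11.5H and 1835, 379.9 and 84.0 FPKM in HO libraries (log2 fold change 3.44 ± 1.07, adjusted p = 0.0555), so that HO library 3 was closest to the embryonic level and HO library 1 far above it. The proteoglycans of connective tissue Lum (log2 fold change 3.43, adjusted p = 0.00914) and Dcn (log2 fold change 3.05, adjusted p = 0.0242) rose. Lox, which cross-links collagen, was at 3.82, 2.78 and 3.65 FPKM in E11.5H and 83.7, 92.3 and 12.7 FPKM in HO libraries (log2 fold change 4.10 ± 0.75, adjusted p = 0.0121). The receptors of fibroblasts and pericytes, Pdgfra (log2 fold change 0.37, adjusted p = 0.730) and Pdgfrb (log2 fold change -0.52, adjusted p = 0.705), overlapped between groups. The basement membrane collagen Col4a1 (log2 fold change -0.18, adjusted p = 0.373) missed the threshold, and Col18a1 (log2 fold change -1.17, adjusted p = 0.00262) fell. Dcn and Lox lost the call without any 1 E11.5H library, and Col1a1 without any 1 E11.5H library or HO library 1, and Lum without E11.5H library 1 or 2. Col1a1 had a log2 fold change between 2.11 and 3.74 when 1 library was left out (HO library 1 and HO library 3).

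Of 29 basement membrane and integrin genes 3 (1 without any 1 E11.5H library and 7 without HO library 2) rose and 3 (1 to 3 without any 1 E11.5H library and 5 without HO library 2) fell (median 0.24). Laminin and entactin were components of the HO gel. The laminin gene Lamc1 was at 39.1, 47.1 and 41.0 FPKM in E11.5H and 45.1, 38.2 and 40.5 FPKM in HO libraries (log2 fold change -0.13 ± 0.12, adjusted p = 0.453). The entactin gene Nid1 was at 42.3, 40.4 and 35.6 FPKM in E11.5H and 21.2, 35.5 and 10.03 FPKM in HO libraries (log2 fold change -0.92 ± 0.41, adjusted p = 0.140). Both missed the threshold. Matrix proteases and their inhibitors rose in 10 (3 without any 1 E11.5H library, 5 without HO library 1 and 17 without HO library 3) of 27 cases tested (of 31 listed) and fell in 0 (3 without HO library 2 and 1 without HO library 3) (median 1.44). Mmp12, the macrophage elastase, was at 0 FPKM in all 3 E11.5H libraries and 15.3, 22.8 and 4.84 FPKM in HO libraries, at least 514-fold higher (adjusted p = 0.00603). Timp1, an inhibitor that cytokines induce, was at 24.7, 18.2 and 18.8 FPKM in E11.5H and 497, 234 and 55.0 FPKM in HO libraries (log2 fold change 3.59 ± 0.77, adjusted p = 0.0196). Serpine2, an inhibitor of plasminogen activation, was at 63.0, 67.4 and 77.3 FPKM in E11.5H and 186, 263 and 173 FPKM in HO libraries (log2 fold change 1.48 ± 0.19, adjusted p = 0.00417). Timp1 lost the call without any 1 E11.5H library.

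Smooth muscle genes went both ways, 8 (5 to 7 without any 1 E11.5H library) of 18 lower and 4 (0 to 1 without any 1 E11.5H library, 2 without HO library 1 and 2 without HO library 2) higher (median -0.76, or 1.87 with cardiomyocyte scaling). Acta2, an actin that embryonic cardiomyocytes express too, was at 886, 876 and 726 FPKM in E11.5H and 252, 298 and 116 FPKM in HO libraries (log2 fold change -1.99 ± 0.35, adjusted p = 0.0106). Cnn1 was at 139, 149 and 146 FPKM in E11.5H and 21.8, 18.3 and 7.29 FPKM in HO libraries (log2 fold change -3.28 ± 0.41, adjusted p = 0.00412). Actg2, of visceral smooth muscle, was at 3.34, 2.33 and 1.7 FPKM in E11.5H and 37.1, 114 and 15.4 FPKM in HO libraries (log2 fold change 4.39 ± 0.79, adjusted p = 0.0118). Of 21 cushion and valve mesenchyme genes 4 (2 to 3 without any 1 E11.5H library and 7 without HO library 2) fell and 1 (4 without HO library 3) rose (median -0.22, or 2.64 with cardiomyocyte scaling). Hapln1 and Vcan, which build the cardiac jelly, fell. Hapln1 was at 47.0, 41.3 and 30.5 FPKM in E11.5H and 0.199, 2.06 and 0.763 FPKM in HO libraries (log2 fold change -5.40 ± 0.83, adjusted p = 0.00736). Vcan was at 40.9, 41.8 and 36.1 FPKM in E11.5H and 5.89, 13.9 and 4.07 FPKM in HO libraries (log2 fold change -2.42 ± 0.45, adjusted p = 0.0128). Both lay lower in each HO library. Epicardial genes were 6 (3 without any 1 E11.5H library) higher and 1 (0 without any 1 E11.5H library and 6 without HO library 1) lower of 17 tested (median 0.68). The members that rose were Krt8, Krt18, Krt19, Msln, Rarres2 and Dcn, which cell types outside the epicardium express too. The epicardial factor Tcf21 was at 31.6, 32.3 and 34.3 FPKM in E11.5H and 23.0, 5.67 and 2.66 FPKM in HO libraries (log2 fold change -1.73 ± 0.76, adjusted p = 0.137). Wt1 was at 3.58, 3.84 and 3.91 FPKM in E11.5H and 16.6, 1.39 and 0.828 FPKM in HO libraries with HO library 1 above and the other two under E11.5H (log2 fold change 0.66 ± 1.09, adjusted p = 0.675). Of 16 cartilage and bone genes tested 3 rose and 5 (0 without any 1 E11.5H library and 3 without HO library 1) fell (median -0.32, or 2.54 with cardiomyocyte scaling). Spp1 (osteopontin), which macrophages secrete as well, was at 0.357, 0.542 and 0.225 FPKM in E11.5H and 486, 465 and 78.0 FPKM in HO libraries (log2 fold change 9.73 ± 0.97, adjusted p = 0.00232). Actg2 and Vcan lost the call without any 1 E11.5H library, and Acta2 without E11.5H library 1 or 2.

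Genes of cell types outside the heart were mostly high in 1 HO library each. Secreted proteins of hepatocytes and visceral endoderm held 0.0132, 0.0141 and 0.0135% of fragments in E11.5H and 0.114, 0.0410 and 1.45% in HO libraries. Of 29 listed, 15 had enough counts to test, 10 (0 to 1 without any 1 E11.5H library, 6 without HO library 1 and 17 without HO library 2) rose and 0 (1 without HO library 3) fell. A gene at nearly 0 in E11.5H passed the filter only through HO libraries, so such counts are a description. Afp, the fetal albumin of yolk sac and liver, was at 0.777, 0.0297 and 0.0649 FPKM in E11.5H and 85.0, 1.88 and 2376 FPKM in HO libraries (log2 fold change 11.37 ± 3.07, adjusted p = 0.0371). Apoa1, of lipoproteins, was at 0.758, 0.0314 and 0.171 FPKM in E11.5H and 115, 1.24 and 1303 FPKM in HO libraries (log2 fold change 10.42 ± 2.72, adjusted p = 0.0339), and albumin (Alb) was at 0.0151, 0 and 0 FPKM in E11.5H and 0, 0.876 and 40.3 FPKM in HO libraries and not tested. HO library 3 was the highest for 14 of 15 members with a mean of at least 5 CPM in HO libraries, a limit that its own level helps to pass. Afp and Apoa1 lost the call without any 1 E11.5H library or HO library 1. Afp had a log2 fold change between 7.14 and 13.93 when 1 library was left out (HO library 3 and E11.5H library 1).

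Epithelial genes followed the same libraries, with 0.296, 0.142 and 0.752% of fragments in HO libraries against 0.0386, 0.0409 and 0.0353% in E11.5H. Of these genes 18 (3 to 4 without any 1 E11.5H library) of 24 rose and 0 fell. Epcam was at 0.393, 0.496 and 0.279 FPKM in E11.5H and 58.4, 5.67 and 235 FPKM in HO libraries (log2 fold change 7.91 ± 1.5, adjusted p = 0.0137). E-cadherin (Cdh1) was at 0.0281, 0 and 0.00764 FPKM in E11.5H and 19.1, 1.32 and 71.8 FPKM in HO libraries (log2 fold change 11.14 ± 2.0, adjusted p = 0.0116). Krt8, a keratin of simple epithelia, was at 26.2, 24.2 and 17.9 FPKM in E11.5H and 313, 332 and 783 FPKM in HO libraries (log2 fold change 4.30 ± 0.44, adjusted p = 0.00243). Krt8 was high in all 3 HO libraries, Epcam and Cdh1 mainly in libraries 1 and 3. Of 24 endoderm transcription factors 14 were tested, 6 (0 to 1 without any 1 E11.5H library and 12 without HO library 2) rose and 1 (0 without any 1 E11.5H library and 0 without HO library 1) fell. Foxa2, a founding factor of endoderm, was at 0 FPKM in all 3 E11.5H libraries and 1.48, 0.452 and 10.7 FPKM in HO libraries, at least 97.1-fold higher (adjusted p = 0.0331). Of 27 intestinal genes 12 were tested and 9 (0 without any 1 E11.5H library, 5 without HO library 1 and 16 without HO library 2) rose. Fabp1, the fatty acid carrier of gut and liver, was at 0.426, 0.182 and 0.198 FPKM in E11.5H and 119.8, 2.99 and 451 FPKM in HO libraries (log2 fold change 9.35 ± 2.01, adjusted p = 0.0194). The intestinal master factor Cdx2 was at 0 FPKM in all 3 E11.5H libraries and 1.04, 0 and 18.6 FPKM in HO libraries and not tested. Tff2, of stomach mucus, was at 0 in all 6 libraries. Epcam, Cdh1 and Fabp1 lost the call without any 1 E11.5H library, and Foxa2 without any 1 E11.5H library or HO library 1.

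Neural genes held 0.0564, 0.174 and 0.0205% of fragments in HO libraries 1, 2 and 3 and 0.0272, 0.0251 and 0.0260% in E11.5H. HO library 2 was the highest for 14 of 14 members with a mean of at least 5 CPM in HO libraries, a limit that its own level helps to pass. Of 20 tested (of 29) 5 (0 to 2 without any 1 E11.5H library, 3 without HO library 2 and 15 without HO library 3) rose. Peripherin (Prph), an intermediate filament of peripheral neurons, rose and was at 0.0502, 0 and 0.0726 FPKM in E11.5H and 15.5, 67.7 and 4.32 FPKM in HO libraries (log2 fold change 9.32 ± 1.49, adjusted p = 0.00827). The tubulin of neurons, Tubb3, was at 9.82, 6.54 and 6.76 FPKM in E11.5H and 40.9, 138 and 3.88 FPKM in HO libraries with HO library 3 under E11.5H (log2 fold change 2.88 ± 1.10, adjusted p = 0.0967). Sox1, of the neural plate, was at 0 in all 6 libraries, and Neurog1 and Neurog2 were at 0 except in HO library 2, at 0.0902 and 0.165 FPKM. Prph lost the call without E11.5H library 1.

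Skeletal muscle genes held 0.136 to 0.154% of fragments in E11.5H and 0.0447 to 0.0872% in HO libraries. Of 28 listed 14 were tested, 3 (5 without HO library 2) fell and 1 (0 without any 1 E11.5H library, 0 without HO library 2 and 3 without HO library 3) rose. The fall was in genes that embryonic heart also uses, such as Myl1 (log2 fold change -2.05, adjusted p = 0.00136). Acta1, the skeletal actin, was at 457, 432 and 371 FPKM in E11.5H and 99.6, 154 and 161 FPKM in HO libraries (log2 fold change -1.7 ± 0.19, adjusted p = 0.00324). The myogenic factor Myod1 was at 0 FPKM in all 3 E11.5H libraries and 0, 19.3 and 0 FPKM in HO libraries. Its partner Myog was at 0.0421, 0.126 and 0 FPKM in E11.5H and 0, 29.97 and 0 FPKM in HO libraries. Both stood out in HO library 2 alone and were not tested. Pou5f1, the core pluripotency factor, was at 0 FPKM in all 3 E11.5H libraries and 0, 0.106 and 0 FPKM in HO libraries. Nanog was at 0.0835, 0.221 and 0.166 FPKM in E11.5H and 0.0102, 0.0819 and 0.124 FPKM in HO libraries, and neither had enough counts to test. Of 29 pluripotency and early embryo genes 13 were tested, 3 (1 to 2 without any 1 E11.5H library and 6 without HO library 3) rose and 2 (0 without any 1 E11.5H library and 4 without HO library 3) fell. One that rose was Klf5, which epithelia express too, at 1.54, 1.31 and 0.608 FPKM in E11.5H and 22.2, 21.7 and 52.8 FPKM in HO libraries (log2 fold change 4.72 ± 0.55, adjusted p = 0.00336). Of 39 Hox genes only 7 were tested, and the 4 (1 without any 1 E11.5H library and 2 without HO library 1) that rose were Hoxb2, Hoxb3, Hoxb4 and Hoxd8. Hoxb2 was at 2.34, 1.48 and 1.06 FPKM in E11.5H and 22.0, 14.3 and 10.7 FPKM in HO libraries (log2 fold change 3.19 ± 0.43, adjusted p = 0.00491).

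**Figure D4:**
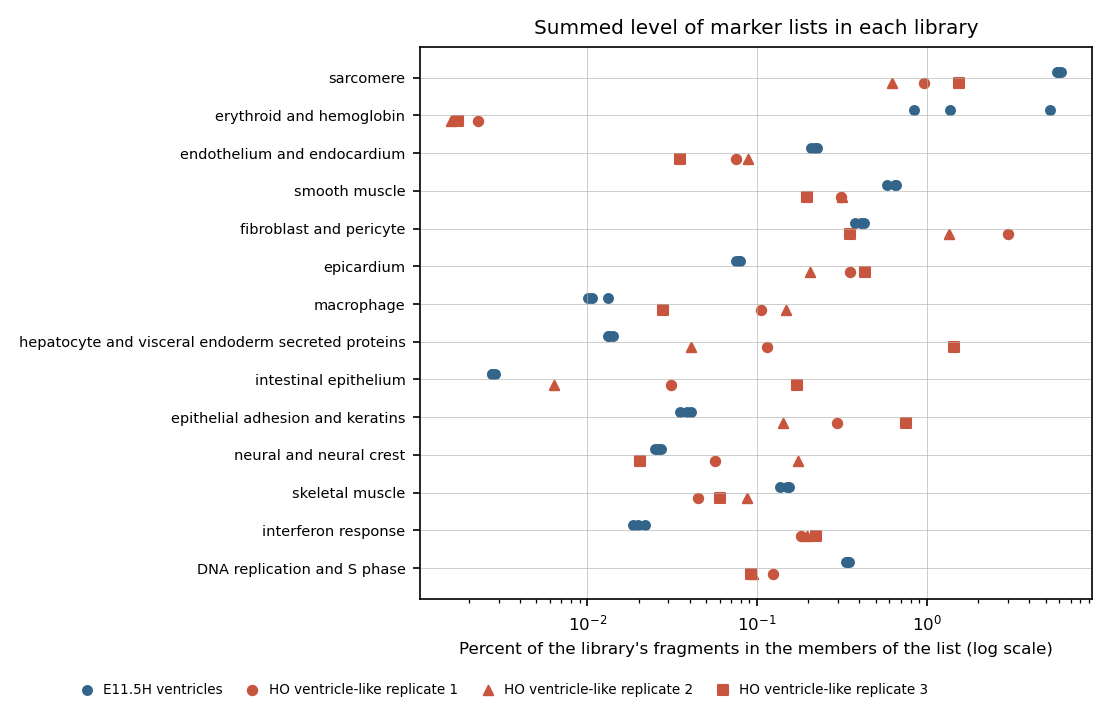
Summed share of fragments, in percent on a log axis, held by lists of cell type genes in each of the 6 libraries (points are libraries). E11.5H library 3 is the highest for erythroid genes, HO library 3 for hepatocyte and epithelial genes, HO library 2 for neural genes and HO library 1 for fibroblast genes.

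BMP4, FGF4 and the Wnt activator BIO were in the medium of all 3 HO libraries, so the part of these additives in the values of their target genes cannot be told apart from that of culture as a whole. Of 18 BMP response genes 8 (3 without any 1 E11.5H library and 5 without HO library 1) rose and 0 fell (median 1.41). Msx2, a homeobox target, was at 5.64, 7.11 and 7.92 FPKM in E11.5H and 17, 26.8 and 22.0 FPKM in HO libraries (log2 fold change 1.57 ± 0.23, adjusted p = 0.00632). Grem1, a secreted BMP antagonist, was at 0 FPKM in all 3 E11.5H libraries and 3.09, 4.76 and 1.26 FPKM in HO libraries, at least 48.2-fold higher (adjusted p = 0.00914). These and Nog (log2 fold change 2.90, adjusted p = 0.0467), another antagonist, rose. The direct targets Id1 (log2 fold change 0.61, adjusted p = 0.0629), Id2 (log2 fold change -0.61, adjusted p = 0.0112) and Id3 (log2 fold change 0.35, adjusted p = 0.610) were not called. Of 16 Wnt response genes tested 2 (1 to 2 without any 1 E11.5H library) rose and 1 (2 without HO library 2) fell (median 0.68). Axin2, the standard target of beta-catenin, was at 0.396, 0.378 and 0.572 FPKM in E11.5H and 1.10, 0.747 and 0.616 FPKM in HO libraries (log2 fold change 0.77 ± 0.46, adjusted p = 0.245) and overlapped between groups. Notum, which inactivates Wnt ligands, was at 1.10, 0.560 and 0.436 FPKM in E11.5H and 13.4, 12 and 5.38 FPKM in HO libraries (log2 fold change 3.78 ± 0.54, adjusted p = 0.00606). Of 15 FGF response genes 3 (1 to 2 without any 1 E11.5H library and 7 without HO library 3) rose and 1 (0 to 1 without any 1 E11.5H library and 2 without HO library 2) fell (median 0.58). The feedback inhibitor Spry1 (log2 fold change 1.18, adjusted p = 0.00780) rose and Dusp6 (log2 fold change 1.08, adjusted p = 0.125) missed the threshold. Nog lost the call without any 1 E11.5H library or HO library 1, and Spry1 without E11.5H library 2. Nog had a log2 fold change between 1.44 and 3.30 when 1 library was left out (HO library 2 and HO library 3).

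Of 37 secreted growth factor genes 9 (5 without any 1 E11.5H library) rose and 6 (3 without any 1 E11.5H library) fell (median 0.03). Ligands of the EGF receptor were among those that rose. Areg, amphiregulin, was at 0.154, 0.127 and 0.279 FPKM in E11.5H and 11.4, 28.5 and 17.7 FPKM in HO libraries (log2 fold change 6.56 ± 0.55, adjusted p = 0.00164). Hbegf was at 5.53, 5.67 and 5.57 FPKM in E11.5H and 31.5, 24 and 23.7 FPKM in HO libraries (log2 fold change 2.15 ± 0.17, adjusted p = 0.00148). Pdgfb, a ligand for pericytes, was at 1.14, 0.774 and 0.949 FPKM in E11.5H and 4.05, 3.59 and 4.02 FPKM in HO libraries (log2 fold change 1.93 ± 0.29, adjusted p = 0.00698). In all 3 the groups did not overlap. Among those that fell, Bmp7 was at 52.4, 58.9 and 57.4 FPKM in E11.5H and 2.57, 1.60 and 11.1 FPKM in HO libraries (log2 fold change -3.55 ± 0.76, adjusted p = 0.0193). Fgf9, the epicardial signal for cardiomyocyte division, was at 1.88, 3.01 and 2.29 FPKM in E11.5H and 0.362, 0.621 and 0.834 FPKM in HO libraries (log2 fold change -2.08 ± 0.42, adjusted p = 0.0168). Vegfc was at 17, 13 and 12.3 FPKM in E11.5H and 3.49, 5.86 and 3.69 FPKM in HO libraries (log2 fold change -1.79 ± 0.26, adjusted p = 0.00649). These 3 were lower in each HO library than in any E11.5H library. Bmp4, which was supplied as protein, was at 26.0, 22.9 and 14.3 FPKM in E11.5H and 6.48, 4.92 and 17.6 FPKM in HO libraries with overlapping groups (log2 fold change -1.20 ± 0.52, adjusted p = 0.128). Bmp7 lost the call without any 1 E11.5H library or HO library 1, and Fgf9 without any 1 E11.5H library.

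Genes of general function moved little under TMM scaling. That scaling takes most genes as unchanged, so they are no independent fixed point. Of 35 cytosolic ribosomal protein genes 0 rose and 0 (1 without HO library 2) fell (median -0.07, or 0.07 with total counts only and 2.46 with cardiomyocyte scaling), with a median CV of 0.0801 in HO and 0.0277 in E11.5H libraries. Rpl13 was at 1315, 1283 and 1239 FPKM in E11.5H and 1447, 1322 and 1429.8 FPKM in HO libraries (log2 fold change 0.04 ± 0.10, adjusted p = 0.801). At an adjusted p under 0.05 with no fold change limit, 2 of these genes were higher and 1 was lower. The higher ones were Rps14 (log2 fold change 0.51, adjusted p = 0.0260) and Rps19 (log2 fold change 0.55, adjusted p = 0.0250).

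Among the 12 largest rises of genes with at least 20 CPM in the higher group were Saa3, Mmp12, Entpd2, Ret, Lcn2, Rhox6, Tlx2, Krt15, Prl2c2, Fgfbp1 and Gsta1. Of these all but Krt15 were at 0 in the 3 E11.5H libraries. The bounds below are of the mean over the 3 HO libraries and do not hold for each library. For Tlx2, Rhox6 and Prl2c2 HO library 2 sets most of that mean. Ret, the receptor tyrosine kinase of enteric neurons, was at 2.90, 8.44 and 0.668 FPKM in HO libraries, at least 282-fold higher, and the homeobox gene Tlx2 at 9.50, 39.1 and 0.237 FPKM, at least 224-fold higher. Entpd2, an enzyme that splits extracellular ATP, was at 2.87, 3.38 and 41.8 FPKM, at least 301-fold higher. Rhox6, a homeobox gene of the placenta and germ line, was at 0.459, 65.2 and 21.8 FPKM, at least 241-fold higher, and Prl2c2, a prolactin relative of trophoblast, at 3.46, 70.7 and 1.60 FPKM, at least 205-fold higher. Gsta1, a glutathione transferase, was at 8.05, 1.653 and 55.3 FPKM, at least 182-fold higher, and Fgfbp1, which frees FGF from matrix, at 21.7, 3.48 and 22.9 FPKM, at least 196-fold higher. Krt15, a keratin of stratified epithelium with 1 fragment in E11.5H, was at 61.1, 6.51 and 78.2 FPKM in HO libraries (ratio 7322, 95% counting interval 1314 to 289235). That interval is of summed fragments and leaves out the spread between libraries. The 12 largest falls were Bmp10 and 11 erythroid rows: Slc4a1, Hemgn, Hbb-y, Hba-x, Hbb-bh1, Hbb-b2, Hbb-bt, Hba-a1, Hba-a2 and the repeated rows of Hba-a1 and Hba-a2. Counts of Hbb-b2 and Hbb-bt were identical in every library, so these near-identical copies are not separate measurements. Prl2c2, Gsta1, Ifit1 and the globin genes also have close copies, between which reads can be split. Ret and Entpd2 lost the call without any 1 E11.5H library, and Prl2c2 and Gsta1 without any 1 E11.5H library or HO library 1, and Tlx2 without any 1 E11.5H library or HO library 1 or 2, and Rhox6 without any 1 E11.5H library or HO library 2 or 3.

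The pathway annotation that the deposited table carries (KEGG) groups genes independently of these lists, although it shares genes with them. Among 250 pathways with at least 30 genes tested, DNA replication had the highest share of genes lower, 23 of 35 (65.7%), followed by the Fanconi anemia pathway (34.0%), the cell cycle (32.8%) and base excision repair (30.3%), against 7.35% of all genes. Hypertrophic cardiomyopathy, which groups sarcomere and calcium genes, had 26.8% lower. The highest share of genes higher was in Staphylococcus aureus infection, a set of complement, keratin and immune genes, with 32 of 42 (76.2%), followed by complement and coagulation cascades (54.0%), drug metabolism by cytochrome P450 (53.7%) and xenobiotic metabolism by cytochrome P450 (52.4%), against 11.6% of all genes.

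The spread among replicates differed between the groups and set what could be called. The biological CV was 0.604 among HO libraries and 0.211 among E11.5H libraries. Without genes at low levels, the median CV was 0.231 over 12041 of the genes tested in HO and 0.0842 over 10985 in E11.5H libraries. Functions differed in how evenly they were set in the HO libraries. Unfolded protein (0.137), oxidative phosphorylation (0.170), mitosis (0.179) and lysosome genes (0.197) had median CVs under that of all genes, and hypoxia genes (0.267) were near it. Interferon genes (0.340) and sarcomere genes (0.527) were above it. Genes of other cell types spread most, with 1.51 for hepatocyte and visceral endoderm, 1.34 for intestinal, 1.15 for neural, 1 for epithelial and 0.979 for epicardial genes. No test was made of these differences between lists.

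**Figure D5:**
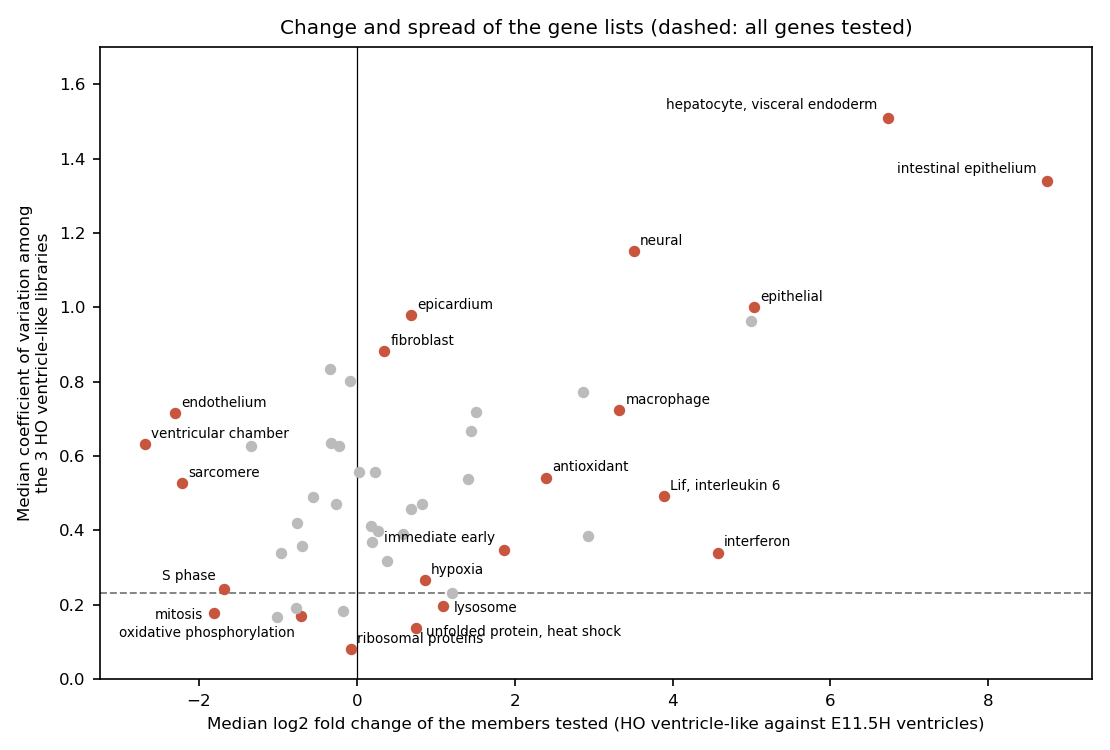
Median log2 fold change (HO minus E11.5H, TMM scaling) of each gene list against its median CV over the 3 HO libraries. Mitosis, lysosome and unfolded protein lists combine a change with a CV under that of all genes (dashed line), while hepatocyte, intestinal and neural lists lie at a CV above 1. CVs are of members with a mean of at least 5 CPM in HO libraries, a limit that 1 high library can pass. Cardiomyocyte scaling moves the points toward higher log2 fold changes, with 2.52 for the median of all genes.

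The use of strand in counting is not stated in the sources used here, so reads of a gene and of a gene that overlaps it on the opposite strand cannot be told apart. This touches B2m, Bmp4, Car9, Ccnd1, Cdh5, Cdkn2b, Col4a1, Erbb2, Fabp3, Gadd45a, Gata6, Gja5, Hk1, Hoxb2, Hoxb3, Igf2, Igf2r, Igfbp7, Mb, Mest, Myh7, Myl4, Nos3, Nqo1, Nr2f2, Nrap, Pln, Plvap, Prdx1, Rarres2 and Timp1 among the genes described.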

How the data were processed

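Total RNA of E11.5H ventricles and HO ventricle-like parts was sequenced after TruSeq library preparation. STAR was the aligner and mm10 (GRCm38) the genome. The authors deposited a table of estimated counts of fragments per gene (23.6% of the values are not whole) and of FPKM values. The version of STAR, the annotation, the counting tool and its use of strand are not given in the sources used here. Groups came from the sample labels, 3 libraries each. Counts of the 6 libraries were rounded, filtered (filterByExpr, minimum count 10), scaled by TMM and tested with the edgeR quasi-likelihood test (edgeR 4.0.16, R 4.3.3) with Benjamini-Hochberg adjustment over 15094 genes. Calls needed a log2 fold change beyond 1 in either direction with an adjusted p below 0.05, and standard errors are the fold change over the root of its F value. FPKM served as levels. Folds against a group at 0 set 3 counts in each of its libraries and use the mean of the other group, which 1 high library can set. The 51 gene lists (1268 members) and the comparison itself were chosen with earlier results of these data known, so they are descriptions. Named genes are list members or the 12 largest rises and falls among genes called without overlap whose higher group averaged 20 CPM or more, and some that the rule takes in are not reported here. Alternatives were RLE, total counts, hemoglobin left out, cardiomyocyte scaling, DESeq2 1.42.0, limma 3.58.1 (voom, and log2(FPKM + 1) or log2(FPKM + 0.1)), other filters and thresholds, all 12 libraries, a replicate block and leaving out each library. Scripts were tested on simulated data, with the same spread in both groups. There edgeR recovered 44% of log2 changes of 2, with 8 of 96 calls false. Of log2 changes of 4 it recovered 75%, with 15 of 165 calls false. Libraries with the same number were not taken as pairs, since neither the labels nor the data tie them. Promoter stretches were read from RefSeq tables of GRCm38.p6, the build of the files. With 3 libraries a group the spread between HO libraries limits the precision.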

Additional observations from a re-analysis of the deposited data

How the results depend on the processing

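Over all genes 2859 were called, 1749 higher and 1110 lower. Limma voom gave 1036 higher and 1252 lower, so the excess of rises was not kept there. With cardiomyocyte scaling 13273 genes were called, 13180 higher and 93 lower, by construction of the scaling. Thresholds moved the count to 4462 (2090 lower) with no fold change limit, 1115 (558 higher and 557 lower) at an adjusted p under 0.01, and 1630 (419 lower) at a log2 fold change over 2. DESeq2 called 3752, and limma on log2(FPKM + 1) 2163 and on log2(FPKM + 0.1) 3063. Leaving out 1 library gave 1116 to 3725 calls, with 559 to 2255 higher and 557 to 1470 lower. With the replicate number as a block 1101 genes were called higher and 902 lower. Libraries of the same number did not deviate together (correlations of their deviations -0.002, -0.0005 and 0.045), so they were not treated as pairs. The spread among HO libraries stayed above that among E11.5H libraries without any 1 library, an alternative chosen after seeing the data. At this depth a gene with no count could still be present at up to 0.116 CPM, a limit that covers counting error only.

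With cardiomyocyte scaling, which raised the median of all genes by 2.52, the sign turned for 59 of the genes named, at log2 fold changes of 0.0194 for Cdh5, 0.0294 for Mb, 0.0717 for Mcm5, 0.31 for Ube2c, 0.34 for Vcan, 0.34 for Myl7, 0.36 for Fgf9, 0.38 for Ccnd1, 0.54 for Idh2, 0.55 for Myl1, 0.57 for Ryr2, 0.59 for Irs1, 0.59 for Fabp3, 0.66 for Cpt1b, 0.68 for Acta2, 0.70 for Hk1, 0.78 for Ppargc1a, 0.78 for Mcm6, 0.81 for Acta1, 0.82 for Vegfc, 0.82 for Tcf21, 0.84 for Hand1, 1.0 for Bmp4, 1.02 for Cdk1, 1.06 for Mef2c, 1.07 for Erbb2, 1.21 for Myh6, 1.25 for Slc25a4, 1.36 for Cs, 1.36 for Atp5g3, 1.41 for Col18a1, 1.41 for Cycs, 1.41 for Tnni3, 1.43 for Sdf2l1, 1.45 for Igf2, 1.65 for Kdr, 1.69 for Nrg1, 1.81 for Tpm1, 1.81 for Nid1, 1.88 for Gata6, 1.91 for Id2, 1.95 for Atp2a2, 1.95 for Hand2, 2.06 for Pdk1, 2.09 for Tbx5, 2.09 for Gpx1, 2.10 for Gata4, 2.19 for Hsp90b1, 2.19 for Bub3, 2.21 for Gja1, 2.21 for Hif1a, 2.26 for Slc2a1, 2.29 for Calr, 2.30 for Mef2a, 2.31 for Col4a1, 2.33 for Pkm, 2.36 for Gapdh, 2.37 for Lamc1 and 2.42 for Pdgfrb. Genes that were not called in the main comparison turned sign in other settings: Eno1 at -0.0131 with no filter on low counts, Gapdh at 0.0773 and Lamc1 at 0.00391 with total counts only, Gapdh at 0.00609, Pdgfra at -0.0192 and Wt1 at -0.17 with limma on log2(FPKM + 1), Gapdh at 0.00609, Pdgfra at -0.11 and Wt1 at -0.45 with limma on log2(FPKM + 0.1), Pdgfra at -0.22 and Wt1 at -0.60 with limma voom, Pdgfra at -0.17 and Wt1 at -0.75 with the replicate block. When 1 library was left out the log2 fold change ranged for Eno1 from -0.0797 to 0.10, Id3 from -0.17 to 0.72, Pdgfra from -0.55 to 0.85, Rpl13 from -0.00837 to 0.10, Wt1 from -1.90 to 1.17 and Gapdh from -0.30 to 0.0899. Over the named genes, leaving out 1 library kept 1243 results on their side of the threshold, moved 167 out of the call and 13 into it. Results whose sign turned were counted apart, and there were 10. The other settings kept 3230, moved 215 out and 55 in, and turned the sign in 72. The causes of these moves were not tested.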

Other observations

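Genes of the sex chromosomes differed among the E11.5H libraries, and were chosen here after their values were seen. Xist, the RNA of the inactive X chromosome, was at 3.37, 3.42 and 0 FPKM in E11.5H and 0, 0 and 0.00589 FPKM in HO libraries. Ddx3y, on the Y chromosome, was at 0.00672, 0 and 9.60 FPKM in E11.5H and 14.2, 12.8 and 8.79 FPKM in HO libraries. Eif2s3y, also on the Y chromosome, was at 0.0175, 0 and 15.7 FPKM in E11.5H and 26.4, 15.5 and 23.5 FPKM in HO libraries. Y-linked genes were thus expressed in E11.5H library 3 and in all 3 HO libraries, and Xist in E11.5H libraries 1 and 2. The part of sex in the other differences between the groups was not tested.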
